A study of Mus musculus with 22 samples.

Results

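Fibroblasts sorted from mouse skin 2 days after back surgery were compared between animals that carried an expander hydrogel under the skin (EXP) and operated animals without one (CTRL). An expander is a device that takes up fluid and swells, so that the skin above it is stretched. The comparison used the 3 EXP and 3 CTRL libraries labelled day 2, out of 22 libraries in a series that also covered days 1 and 4. Both groups had the same operation, with a cut near the tail and a path made under the skin towards the neck, where the EXP animals received the hydrogel, held by stitches. The CTRL group is therefore wounded skin and not untouched skin. No genetic change was named, and strain, age and sex are not given in the sources used here. Cells with CD31, CD45, CD117 or EpCAM had been removed and live cells with CD34 and PDGFRα kept, and RNA from these cells went into ultra-low-input libraries. The labels do not say whether each library came from its own animal, so the p-values measure the spread between libraries. That spread was estimated within the groups of all 22 libraries and not from the day 2 libraries alone.

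Dermal fibroblasts build the collagen-rich matrix of the skin and remodel it with secreted proteases. After wounding they also release chemokines and cytokines that call in blood cells, and a part of them enters the cell cycle or takes on contractile features. Cells that prepare to divide need new membrane, and the genes of cholesterol synthesis are switched on together by the SREBP2 factor when sterol runs low.

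Of 55414 genes in the table, 17554 had enough counts to be tested. The day 2 libraries held 21461294 to 27256672 counts, and a level of 3 counts corresponded to 0.0985 to 0.155 CPM, a gene's counts relative to its library's total, with totals scaled by the TMM method to correct for composition. Such floors cover counting error only, since the labels name no molecular tags and PCR copies cannot then be told from separate molecules. The 3 collagen genes Col1a1, Col1a2 and Col3a1 took 26.9 to 30.7% of counts in CTRL and 6.95 to 16.1% in EXP, and the TMM factors were 0.79 to 0.903 in CTRL and 1.06 to 1.27 in EXP. Mitochondrial genes took 0.617 to 1.1% of counts in CTRL and 1.17 to 1.4% in EXP, and the part of RNA quality in the results was not tested. On the first principal component, which carried 56.5% of the variance of the 6 libraries, EXP replicate 1 lay farthest from the CTRL libraries (95.11) and EXP replicate 2 nearest (37.71, against -73.68 to -57.66 in CTRL).

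The RNA of the 2 genes used for the positive sort moved in opposite directions. Per-library values are given here and below in the order of replicates 1, 2 and 3. Pdgfra was at 234, 225 and 257 CPM in CTRL and 1017, 468 and 856 CPM in EXP, without overlap (log2 fold change 1.71, SE 0.31, edgeR adjusted p 0.00128). Cd34 moved the other way, at 1803, 1659 and 2076 CPM in CTRL and 215, 670.5 and 442 CPM in EXP (log2 fold change -2.06, SE 0.43, edgeR adjusted p 0.00376). Ptprc, which encodes CD45, and Kit, which encodes CD117, had too few counts to be tested, and Pecam1, which encodes CD31, stayed at or under 0.328 CPM. Epcam was at 0.253, 2.06 and 1.88 CPM in CTRL and 1.38, 0.753 and 1.26 CPM in EXP, with overlap between the groups.

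Summed levels of marker genes of other cell types were low beside the fibroblast markers, whose 11 genes summed to 326000 to 415000 CPM in CTRL and 70700 to 175000 in EXP. Of these 11 fibroblast markers 1 was called higher and 5 lower, and without EXP replicate 1 the calls numbered 2. The 12 keratinocyte markers summed to 10.8 to 47.8 CPM in CTRL and 6.34 to 7.29 in EXP. Of 11 tested 0 were called higher and 1 lower, namely Trp63 (log2 fold change -2.59, edgeR adjusted p 0.0042). The 10 endothelial markers summed to 26.9 to 60.3 and 26.4 to 68.4 CPM, of which Plvap made up 93.5% and Tie1 was at 0. Of 9 endothelial markers tested 1 was called higher and 0 lower. This was Kdr, at 0, 0.21 and 0 CPM in CTRL and 1.77, 0.436 and 0.572 CPM in EXP (log2 fold change 3.72, edgeR adjusted p 0.0334). The call of Kdr was lost without CTRL replicates 1 and 3 or EXP replicate 1, with adjusted p up to 0.177. For 3 of the 9 all EXP libraries lay above all CTRL libraries (21.2% of all genes did), and for 0 below (18.1%). Of all genes tested 7.85% were called higher and 5.62% lower, and marker calls are read against these shares. The 10 macrophage markers summed to 145 to 189 CPM in CTRL and 99.6 to 173 in EXP, with 66.1% from Csf1r. Of the 7 macrophage markers tested 2 were called higher and 1 lower: Cd68, a lysosomal protein, was at 3.54, 5.16 and 3.17 CPM in CTRL and 24.8, 8.6 and 9.8 CPM in EXP (log2 fold change 1.86, SE 0.52, edgeR adjusted p 0.0211), Cd14, a receptor for bacterial products, was at 19, 29.2 and 18.5 CPM in CTRL and 40.1, 24.3 and 87.5 CPM in EXP (log2 fold change 1.19, SE 0.36, edgeR adjusted p 0.0328), and Cd74, the invariant chain of antigen presentation, was at 3.79, 7.43 and 5.72 CPM in CTRL and 0.558, 0.872 and 0.496 CPM in EXP (log2 fold change -3.13, SE 0.63, edgeR adjusted p 0.00321). Libraries overlapped for Cd14, and the call of Cd14 was lost without CTRL replicates 1 and 3 or EXP replicates 1 and 3, with adjusted p up to 0.335, while the call of Cd68 was lost without CTRL replicates 1 and 3 or EXP replicate 1, with adjusted p up to 0.181. The part of these markers in the changes of inflammatory genes given below was not tested. The 8 neutrophil markers summed to 1.29 to 3.43 CPM in CTRL and 16.2 to 19.8 in EXP, 86% of it from Mmp8, with Cxcr2 at 0 in every library. The 7 T cell markers summed to 2.53 to 4.7 and 4.6 to 7.36 CPM, with Cd3d, Cd3g and Cd8a at 0. The 9 pericyte and smooth muscle markers summed to 88.3 to 99.2 CPM in CTRL and 29.9 to 53.2 in EXP, with 43.2% from Kcnj8, which was not called. Of 8 tested 0 were called higher and 1 lower, namely Des (log2 fold change -2.57, edgeR adjusted p 0.0224). The call of Des was lost without CTRL replicates 1 and 2 or EXP replicates 1 and 3, with adjusted p up to 0.12. Sums were 10.5 to 15.7 and 4.99 to 12.8 CPM for 6 Schwann cell markers, with Sox10 at 0, and 29.9 to 39.7 and 38.1 to 53.7 CPM for 6 melanocyte markers, with Tyr at 0. They were 1.74 to 2.48 and 1.07 to 1.15 CPM for 8 skeletal muscle markers, with Tnnc2, Pax7 and Myod1 at 0. Mitf made up 56.6% of the melanocyte sum, while Tyrp1 had 38 counts in all CTRL libraries and 0 in EXP (edgeR adjusted p 0.0118). The muscle marker Tnnt3 was called lower too (log2 fold change -2.78, edgeR adjusted p 0.0198). These calls were lost without EXP replicate 1, and that of Tnnt3 also without CTRL replicate 2 or EXP replicate 3. The 7 mature adipocyte markers summed to 8.84 to 12.1 CPM in CTRL and 8.16 to 72.3 in EXP, and the highest value was that of EXP replicate 1. Of 6 tested 0 were called lower and 1 higher, namely Cidec (edgeR adjusted p 0.0313). The call of Cidec was lost without CTRL replicates 1, 2 and 3 or EXP replicate 1, with adjusted p up to 0.251. In bulk libraries, fewer cells of a type and less RNA per cell cannot be told apart.

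Between EXP and CTRL on day 2, 2365 genes passed an adjusted p under 0.05 (edgeR quasi-likelihood test with Benjamini-Hochberg adjustment), which is 13.5% of the genes tested. These are the called genes of the text below. Of these 1378 were higher in EXP (7.85%) and 987 lower (5.62%). All 3 EXP libraries lay above all CTRL libraries for 21.2% of genes and below them for 18.1%. The median log2 fold change of all genes was 0.03, and it was 0.49 when libraries were scaled by their totals alone. With totals the called genes numbered 4631, of which 90.5% were higher, against 58.3% with TMM, and all 2365 genes kept their direction. Without EXP replicate 1 there were 894 calls, without CTRL replicate 2 there were 1208, without EXP replicate 3 there were 1372, and without CTRL replicate 1 there were 1442. The count was 1537 without CTRL replicate 3. Genes given as risen or fallen below kept their day 2 calls in each fit that left out 1 library unless a loss is stated.

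Scaling changed both directions: with library totals 4190 genes were called higher and 441 lower. With them the falls of Aldh18a1, Arntl, Bag3, Ccn1, Cd248, Cdkn1a, Col18a1, Col5a2, Dcn, Ier2, Irf1, Klf9, Loxl2, Mylip, Nfkbia, P4ha1, Serpinh1, Socs3 and Tapbp no longer passed, and each was still below 0. Without the filter on low counts 1663 genes were called, and among the genes described the calls of Acta2, Ccn2, Cd14, Clcf1, Gbp2, Il1r2, Insig1, Masp1, Mki67, Plau, Pparg, Prc1, Sfrp2, Sfrp4, Sparc, Thbd and Wnt11 were lost there. So were those of Cd248, Col5a2, Csf2, Klf9, Serpinh1 and Socs3. Those of Csf2 and Car4 were also lost in limma voom, and those of Cd14 and Col5a2 in a fit of the day 2 libraries alone.

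**Figure D1:**
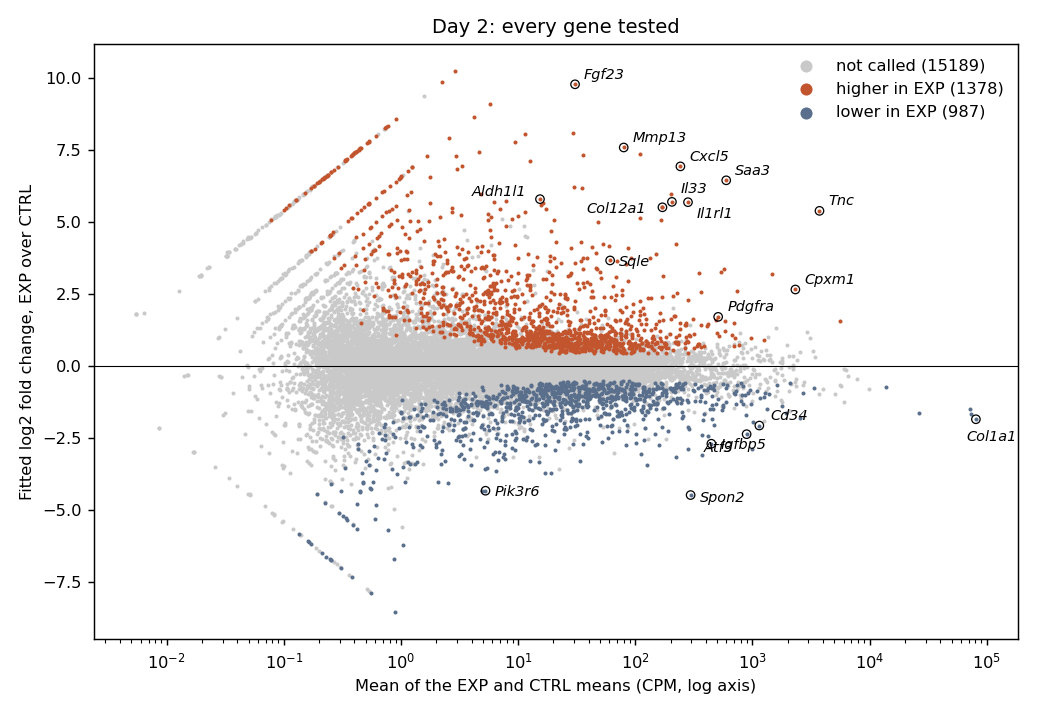
Fitted log2 fold change of EXP over CTRL (vertical axis) against the mean level in CPM (horizontal log axis) for the 17554 genes tested on day 2, coloured by call. The 1378 higher calls reach log2 fold changes near that of Fgf23, while the collagen gene Col1a1 stands at the far right among the 987 lower calls.

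The genes were described in lists by function, and the counts of called members are read against the 13.5% of all genes. The plot of list members shows where calls gathered. Cholesterol synthesis, DNA replication, mitosis, neutrophil-recruiting factors and acute-phase genes held only higher calls, whereas immediate early genes and MHC class I genes held 7 lower calls against 1 higher and 5 against 0.

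**Figure D2:**
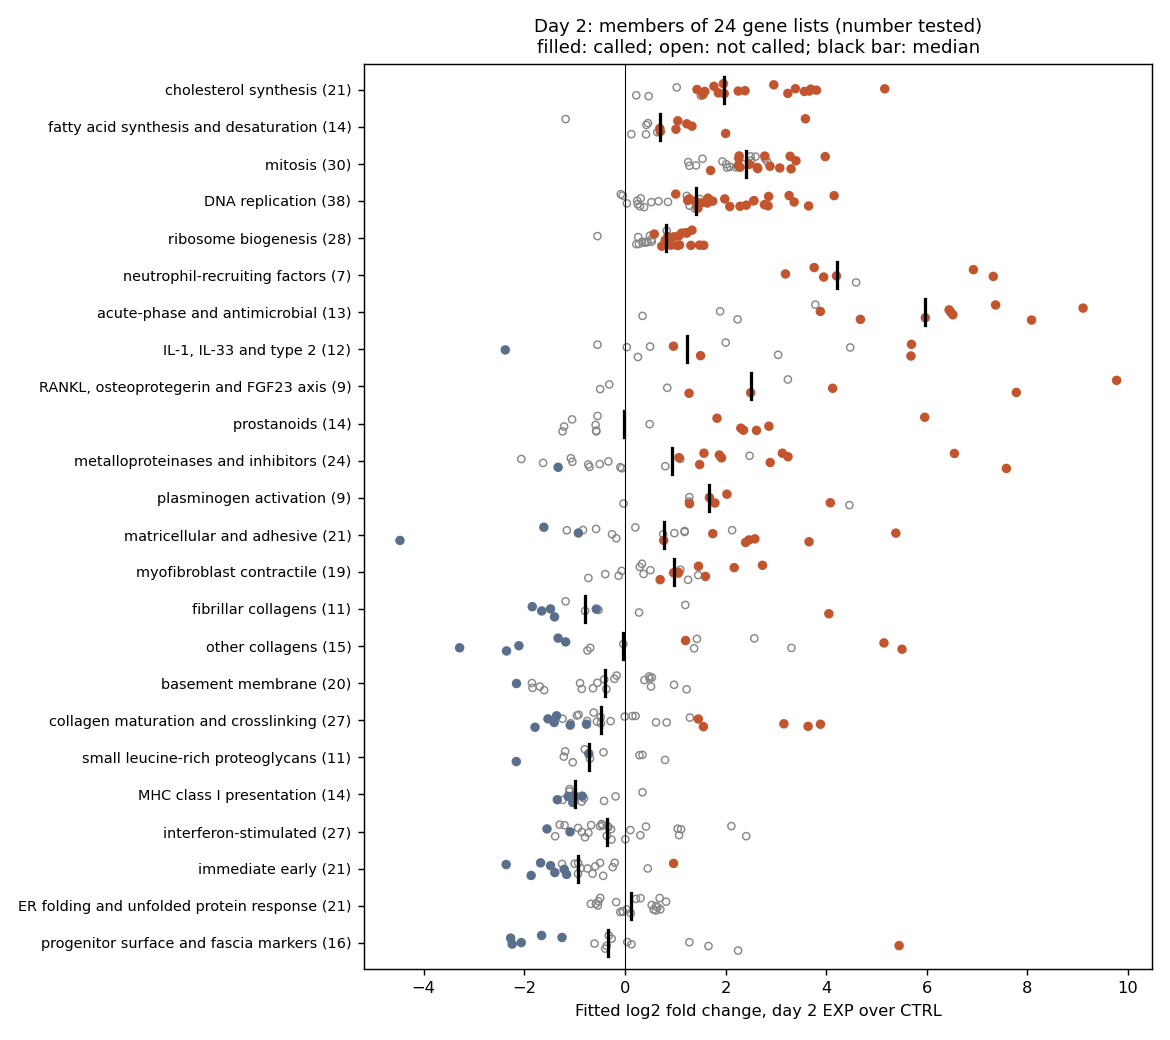
Each point is a tested gene of 1 of 24 lists, placed by its day 2 log2 fold change of EXP over CTRL. Filled points were called, open points were not, and black bars mark list medians, which run from -1.0 for MHC class I presentation to 5.97 for acute-phase and antimicrobial genes.

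Among neutrophil-recruiting factors, 6 of 7 tested genes rose, with a median log2 fold change of 4.21 (3.95 with genes of at most 3 counts in each CTRL library set to their fold over 3 counts). These are CXC chemokines that bind the CXCR2 receptor and colony-stimulating factors. Csf3, the growth factor that drives neutrophil production, was at 0.657, 0.206 and 0.447 CPM in CTRL and 90.1, 33.8 and 88.3 CPM in EXP. Every EXP library was far above every CTRL library (log2 fold change 7.32, SE 1.23, edgeR adjusted p 9.72e-04). Cxcl5 was at 7.47, 2.17 and 2.23 CPM in CTRL and 488, 412 and 544 CPM in EXP (log2 fold change 6.93, SE 1.21, edgeR adjusted p 0.00126), again with no overlap. Cxcl1 was at 294, 319 and 254 CPM in CTRL and 2514, 2738 and 2676 CPM in EXP (log2 fold change 3.19, SE 0.44, edgeR adjusted p 1.65e-04), with EXP libraries closely alike. Cxcl2 was at 23.2, 20.4 and 11.9 CPM in CTRL and 175, 313 and 265 CPM in EXP (log2 fold change 3.76, SE 0.6, edgeR adjusted p 7.42e-04) and Cxcl3 at 0.707, 0.413 and 1.7 CPM in CTRL and 10.1, 23 and 20 CPM in EXP (log2 fold change 4.21, SE 0.96, edgeR adjusted p 0.00757). These chemokines are close relatives, and reads may have been divided between them. Csf2 was called too (3.95, adjusted p 0.0385), but the call of Csf2 was lost in each of the 6 fits that left out a day 2 library, with adjusted p up to 0.140. Ppbp was at or under 0.159 CPM and did not pass.

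The promoters of Cxcl2 and Cxcl3 are shown because both genes rose and carry the letters of an NF-kB type motif near their start. The RefSeq windows of 300 bases run from 250 bases before to 50 bases after the start, on the gene's strand of build GRCm38.p6, and capitals mark GGGA, any 2 bases, then TTCC on either strand, where the matches of both strands overlap.
Cxcl2, chr5:90903649-90903948, plus strand: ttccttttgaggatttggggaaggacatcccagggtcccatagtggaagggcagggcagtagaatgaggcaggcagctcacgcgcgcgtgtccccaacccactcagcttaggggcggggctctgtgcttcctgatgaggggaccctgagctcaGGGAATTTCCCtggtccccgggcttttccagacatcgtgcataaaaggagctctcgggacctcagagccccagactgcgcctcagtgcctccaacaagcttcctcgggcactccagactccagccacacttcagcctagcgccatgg
Cxcl3, chr5:90785851-90786150, plus strand: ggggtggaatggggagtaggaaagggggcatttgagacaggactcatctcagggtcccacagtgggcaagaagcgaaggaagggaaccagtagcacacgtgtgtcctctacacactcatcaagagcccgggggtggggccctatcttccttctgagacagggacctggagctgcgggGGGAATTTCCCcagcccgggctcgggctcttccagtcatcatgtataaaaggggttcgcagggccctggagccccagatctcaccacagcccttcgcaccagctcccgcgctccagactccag
The match begins 97 bases before the start in Cxcl2 and 73 bases before it in Cxcl3. It was present in 3 of the 5 promoters found for the list (60%), those of Cxcl1, Cxcl2 and Cxcl3. The share was 1.47% of all 32851 promoters, and 0 of the 15 promoters found for acute-phase and antimicrobial genes held it. A match describes letters in this window and not a bound site.

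Of 17 tested chemokines for monocytes and lymphocytes, 2 rose and 0 fell. Cxcl12, the ligand of CXCR4 that holds blood cells in tissue, was at 107, 92.9 and 107 CPM in CTRL and 1152, 742 and 1243 CPM in EXP (log2 fold change 3.35, SE 0.54, edgeR adjusted p 7.20e-04). Cxcl14, a chemokine of resting skin, was at 15.5, 3.3 and 9.87 CPM in CTRL and 397, 113 and 457 CPM in EXP (log2 fold change 5.08, SE 1.06, edgeR adjusted p 0.00431). EXP replicate 2 was the lowest EXP library for both, and it still lay above CTRL. The monocyte attractants did not pass: Ccl2 was at 586, 410.3 and 458 CPM in CTRL and 866, 1476 and 921 CPM in EXP (adjusted p 0.0839), and Ccl7 was at 1054, 1150 and 799 CPM in CTRL and 704, 1902 and 1192 CPM in EXP (adjusted p 0.676).

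The IL-1 and IL-33 list of 12 tested genes had 4 higher calls and 1 lower. Il33, an alarm cytokine held in the nucleus, was at 8.54, 5.42 and 9.34 CPM in CTRL and 512, 342 and 355 CPM in EXP (log2 fold change 5.7, SE 0.72, edgeR adjusted p 1.03e-04). Its receptor gene Il1rl1 was at 13.7, 9.45 and 9.03 CPM in CTRL and 865, 289 and 503 CPM in EXP (log2 fold change 5.68, SE 0.82, edgeR adjusted p 3.28e-04). Both the ligand and the receptor thus rose in all EXP libraries, with no overlap. Il1r1, the signalling receptor for IL-1, was at 163, 126 and 137 CPM in CTRL and 465, 320.1 and 425 CPM in EXP (log2 fold change 1.5, SE 0.26, edgeR adjusted p 8.69e-04). Il1r2, a decoy receptor for IL-1, moved the other way, at 589, 592 and 686 CPM in CTRL and 34.5, 168 and 157 CPM in EXP (log2 fold change -2.38, SE 0.68, edgeR adjusted p 0.0260). However, the call of Il1r2 was lost without CTRL replicates 1, 2 and 3 or EXP replicates 1 and 3, with adjusted p up to 0.119. Il13ra1 rose with a log2 fold change of 0.96 (adjusted p 0.00261).

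In the IL-6 family, 5 of 12 tested genes rose and 1 fell. Il11, a cytokine linked to stromal activation, was at 1.92, 1.96 and 2.15 CPM in CTRL and 63.4, 23.8 and 32.6 CPM in EXP (log2 fold change 4.31, SE 0.75, edgeR adjusted p 0.00127). Lif was at 52.4, 34.7 and 40.4 CPM in CTRL and 122, 168 and 136 CPM in EXP (log2 fold change 1.74, SE 0.37, edgeR adjusted p 0.00416), and the receptor gene Osmr rose by 0.99 on the log2 scale (adjusted p 0.00757). Il6 itself was at 529.9, 608 and 515 CPM in CTRL and 543, 657 and 571 CPM in EXP, with overlapping groups (adjusted p 0.889). The called members of this list numbered 3 without EXP replicate 1. Among 6 called, Clcf1 (1.86, adjusted p 0.0181), Lifr (1.05, adjusted p 0.0161) and Socs3 (-1.0, adjusted p 0.0450) were less stable: the call of Clcf1 was lost without CTRL replicate 2 or EXP replicate 1, with adjusted p up to 0.102, the call of Lifr was lost without CTRL replicate 3 or EXP replicates 1 and 3, with adjusted p up to 0.0892, and the call of Socs3 was lost without CTRL replicates 1, 2 and 3 or EXP replicates 1 and 3, with adjusted p up to 0.187.

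Acute-phase and antimicrobial genes rose in 9 of 13 cases and fell in 0, with a median log2 fold change of 5.97 (3.88 with such low genes at their fold over 3 counts). Lcn2, which binds bacterial iron carriers, was at 0.101, 0.155 and 0.357 CPM in CTRL and 121, 8.09 and 44.8 CPM in EXP (log2 fold change 8.08, SE 1.5, edgeR adjusted p 0.00201). Hp, which encodes haptoglobin, was at 0.96, 1.29 and 1.7 CPM in CTRL and 415, 38.6 and 204 CPM in EXP (log2 fold change 7.37, SE 1.45, edgeR adjusted p 0.00321). Saa3, a serum amyloid gene with close paralogs, was at 13.7, 15.2 and 11.8 CPM in CTRL and 1557, 217 and 1767 CPM in EXP (log2 fold change 6.44, SE 1.23, edgeR adjusted p 0.00243). For all of these, EXP replicate 2 was several times lower than the other EXP libraries, yet above all CTRL libraries. Slpi, a protease inhibitor, was at 5.4, 3.41 and 10.1 CPM in CTRL and 623, 109 and 462 CPM in EXP (log2 fold change 5.97, SE 0.75, edgeR adjusted p 1.03e-04). Lbp, which binds lipopolysaccharide, was at 13.9, 9.39 and 33.8 CPM in CTRL and 222, 208 and 416 CPM in EXP (log2 fold change 3.88, SE 0.7, edgeR adjusted p 0.00154). Reg3g, an antimicrobial lectin, had 1 count in all CTRL libraries together and 932 in all EXP libraries, a scaled ratio of 700 (95% exact interval 125 to 27700, counting error only), with an adjusted p of 0.00137 (edgeR). Saa2 was at 0.101, 1.45 and 0.134 CPM in CTRL and 12.7, 3.41 and 6.63 CPM in EXP and missed the threshold (adjusted p 0.0562).

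S100a8, which is also a neutrophil marker, was called at 0, 0.0516 and 0 CPM in CTRL and 0.624, 0.278 and 4.76 CPM in EXP (adjusted p 0.0167), and the call of S100a8 was lost without CTRL replicates 1, 2 and 3 or EXP replicate 3, with adjusted p up to 0.110. The sum of the 8 neutrophil markers stood at 16.2 to 19.8 CPM in EXP, with Cxcr2 at 0, against 8.09 to 121 CPM for Lcn2 alone. The part of neutrophil RNA in these rises was not tested.

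Genes of the NF-kB and interferon pathways had few calls beside the 13.5% of all genes called in either direction. All of their calls were falls, and 5.62% of all genes were called lower. Of 17 tested NF-kB subunits, inhibitors and targets, 0 rose and 1 fell. That gene, Nfkbia, was at 2048, 1880 and 1983 CPM in CTRL and 1037, 1564 and 1115 CPM in EXP (log2 fold change -0.67, SE 0.2, edgeR adjusted p 0.0337), and the call of Nfkbia was lost without CTRL replicates 1, 2 and 3 or EXP replicates 1 and 3, with adjusted p up to 0.164. Of 27 interferon-stimulated genes, 0 rose and 2 fell. All EXP libraries lay below all CTRL libraries for 7 of the NF-kB genes and 8 of the interferon genes (18.1% of all genes did). They lay above for 1 and 0 (21.2% of all genes did). Gbp2 was at 197, 222 and 142 CPM in CTRL and 56.5, 72 and 63.6 CPM in EXP (log2 fold change -1.55, SE 0.43, edgeR adjusted p 0.0224), but the call of Gbp2 was lost without CTRL replicates 1 and 2 or EXP replicates 1 and 3, with adjusted p up to 0.0990. Irf1 was at 349, 302 and 327 CPM in CTRL and 141, 169.8 and 148 CPM in EXP (log2 fold change -1.09, SE 0.29, edgeR adjusted p 0.0177), but the call of Irf1 was lost without CTRL replicate 1 or EXP replicates 1 and 3, with adjusted p up to 0.0790. The number of called interferon genes was 0 without CTRL replicate 1, 1 without CTRL replicate 2, 0 without EXP replicate 1 and 0 without EXP replicate 3, and the NF-kB call was kept only in the fit without EXP replicate 2. With library totals 1 interferon gene was called higher and 1 lower, and 2 NF-kB genes were called higher and 0 lower, so the 1 NF-kB call was not kept.

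MHC class I presentation genes load peptides on the cell surface for T cells. Of 14 tested, 5 fell and 0 rose, with a median log2 fold change of -1. Tap1, a subunit of the peptide transporter, was at 70.7, 111 and 62.6 CPM in CTRL and 37.3, 35.6 and 23.3 CPM in EXP (log2 fold change -1.34, SE 0.32, edgeR adjusted p 0.00918), but the call of Tap1 was lost without CTRL replicate 2 or EXP replicate 3, with adjusted p up to 0.0659. Tapbp, which bridges that transporter to MHC, was at 602, 559 and 666 CPM in CTRL and 245, 358 and 288 CPM in EXP (log2 fold change -1.03, SE 0.29, edgeR adjusted p 0.0223), but the call of Tapbp was lost without CTRL replicates 1 and 3 or EXP replicates 1 and 3, with adjusted p up to 0.104. H2-Q4, which has close paralogs, fell too (-1.13, adjusted p 0.0154), and the call of H2-Q4 was lost without CTRL replicate 3 or EXP replicates 1 and 3, with adjusted p up to 0.0759. The heavy chain gene H2-D1 was at 9470, 7233 and 8822 CPM in CTRL and 3170, 5250 and 2407 CPM in EXP, with all EXP libraries below CTRL, and did not pass (adjusted p 0.200). The called members numbered 3 without CTRL replicate 1, 2 without CTRL replicate 2, 2 without CTRL replicate 3, 1 without EXP replicate 1 and 0 without EXP replicate 3, and 2 with library totals.

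Complement genes were called higher in 3 of 14 tested and lower in 1. Cfb, a protease of the alternative pathway, was at 5.81, 10.9 and 14 CPM in CTRL and 53.7, 18.4 and 41.7 CPM in EXP (log2 fold change 1.89, SE 0.49, edgeR adjusted p 0.0144), but the call of Cfb was lost without CTRL replicates 1 and 2 or EXP replicate 1, with adjusted p up to 0.0839. Cd55, a membrane protein that breaks up complement enzymes, was at 114, 127 and 179 CPM in CTRL and 12.3, 40.7 and 35.8 CPM in EXP (log2 fold change -2.24, SE 0.38, edgeR adjusted p 8.69e-04). All EXP libraries lay below all CTRL libraries for Cd55. Masp1 rose (1.6, adjusted p 0.0265), but the call of Masp1 was lost without CTRL replicates 1, 2 and 3 or EXP replicates 1 and 3, with adjusted p up to 0.118. Calls in this list numbered 2 without CTRL replicate 1, 2 without CTRL replicate 2 and 2 without EXP replicate 1.

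Prostanoid genes make and sense prostaglandins, and 6 of 14 tested rose. Ptgs2, the inducible cyclooxygenase, was at 216, 219 and 186 CPM in CTRL and 1598, 1161 and 1044 CPM in EXP (log2 fold change 2.62, SE 0.49, edgeR adjusted p 0.00176). Pla2g4a, which frees arachidonic acid, was at 12.7, 8.88 and 8.04 CPM in CTRL and 114, 31.6 and 69.6 CPM in EXP (log2 fold change 2.86, SE 0.4, edgeR adjusted p 1.67e-04). Ptges, which makes prostaglandin E2, was at 102, 76.2 and 106 CPM in CTRL and 472, 179.9 and 753 CPM in EXP (log2 fold change 2.3, SE 0.41, edgeR adjusted p 0.00131). In none of these 3 genes did the groups overlap, and EXP replicate 2 was the lowest EXP library for Pla2g4a and Ptges. The prostacyclin synthase Ptgis was at 0.354, 0.103 and 0 CPM in CTRL and 6.79, 4.16 and 17.5 CPM in EXP (log2 fold change 5.96, SE 1.38, edgeR adjusted p 0.00812), and the prostacyclin receptor Ptgir at 5.86, 9.24 and 10.2 CPM in CTRL and 52.9, 34 and 43.1 CPM in EXP (log2 fold change 2.36, SE 0.4, edgeR adjusted p 8.69e-04). Synthesis and receptor genes of the prostacyclin arm thus rose together. The remaining call was Ptger3 (1.83, adjusted p 0.0172), but the call of Ptger3 was lost without CTRL replicates 1 and 3 or EXP replicate 1, with adjusted p up to 0.0841. The median log2 fold change of the 14 genes was -0.03.

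**Figure D3:**
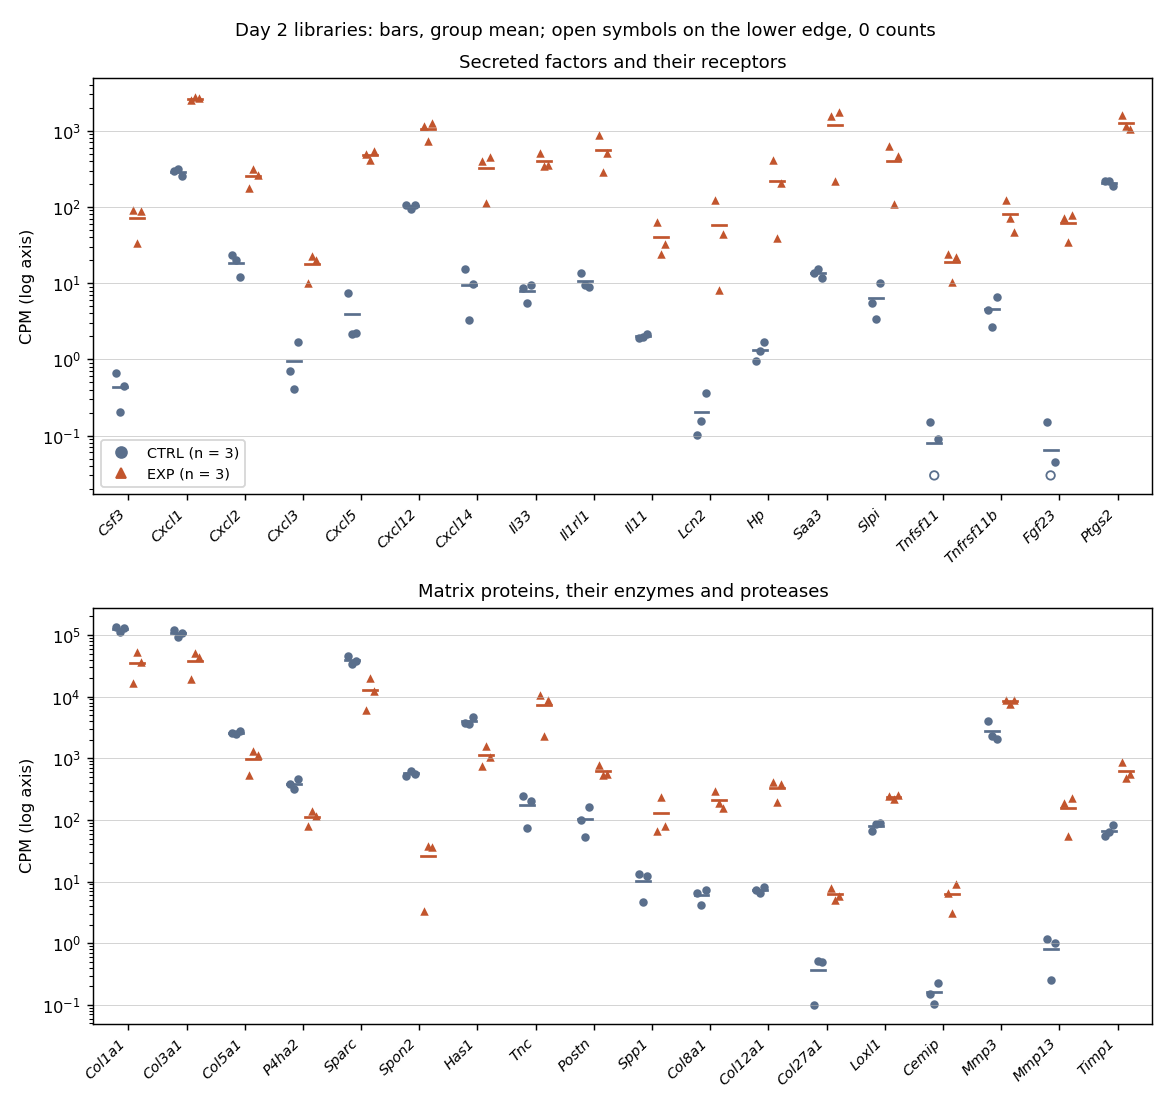
Level of 36 genes in each day 2 library in CPM on a log axis, with CTRL as circles and EXP as triangles (n = 3 each) and bars at the group means. In the upper panel each EXP library lies above each CTRL library, from Csf3 to Ptgs2, and in the lower panel the genes from Col1a1 to Has1 are lower in EXP while those from Tnc to Timp1 are higher.

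Genes known from bone and phosphate control were among the largest rises. Of 9 tested members of the RANKL, osteoprotegerin and FGF23 list, 5 rose and 0 fell, in each of the 6 fits that left out a library. Fgf23, the hormone that lowers blood phosphate, was at 0.151, 0 and 0.0447 CPM in CTRL and 71, 34.8 and 77.5 CPM in EXP. It had 4 counts in all CTRL libraries together and 5074 in all EXP libraries, a scaled ratio of 953 (95% exact interval 372 to 3500, counting error only), with an adjusted p of 8.38e-04 (edgeR). Tnfsf11, which encodes the osteoclast-inducing ligand RANKL, was at 0.151, 0 and 0.0894 CPM in CTRL and 23.8, 10.4 and 22.3 CPM in EXP. It had 5 counts in all CTRL libraries together and 1574 in all EXP libraries, a scaled ratio of 237 (95% exact interval 101 to 730, counting error only), with an adjusted p of 1.65e-04. Tnfrsf11b, the decoy receptor osteoprotegerin that binds RANKL, was at 4.45, 2.63 and 6.61 CPM in CTRL and 123, 70.5 and 47.1 CPM in EXP (log2 fold change 4.13, SE 0.47, edgeR adjusted p 3.73e-05). Ligand and decoy thus rose in the same libraries. The phosphate transporter Slc20a2 was at 12.3, 4.28 and 5.9 CPM in CTRL and 46.9, 31.6 and 48.6 CPM in EXP (log2 fold change 2.5, SE 0.45, edgeR adjusted p 0.00130), while Slc20a1 was at 76.3, 80.7 and 124 CPM in CTRL and 85.3, 73.3 and 67.9 CPM in EXP and did not pass (adjusted p 0.619). Furin, a protease that can cut FGF23, rose by 1.28 on the log2 scale (adjusted p 0.00379).

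Of 11 fibrillar collagens, 5 fell and 1 rose, with a median log2 fold change of -0.79. Col1a1 was at 136900, 111800 and 129900 CPM in CTRL and 16660, 52590 and 36430 CPM in EXP (log2 fold change -1.84, SE 0.43, edgeR adjusted p 0.00738). Col5a1, which helps to start collagen fibrils, was at 2582, 2517 and 2747 CPM in CTRL and 538, 1310 and 1129 CPM in EXP (log2 fold change -1.4, SE 0.26, edgeR adjusted p 0.00159). With library totals these falls were -1.41 (adjusted p 0.00472) and -0.97 (adjusted p 0.00589). EXP replicate 1 was the lowest library for both genes. Col1a2 (-1.65, adjusted p 0.0160), Col3a1 (-1.48, adjusted p 0.0108) and Col5a2 (-0.57, adjusted p 0.0358) also fell, but the call of Col1a2 was lost without CTRL replicate 1 or EXP replicate 1, with adjusted p up to 0.0910, the call of Col3a1 was lost without EXP replicate 1, with adjusted p up to 0.0670, and the call of Col5a2 was lost without CTRL replicates 1 and 3 or EXP replicates 1 and 3, with adjusted p up to 0.167. Col27a1 was the 1 member that rose, from levels near the floor, at 0.101, 0.516 and 0.491 CPM in CTRL and 7.78, 5 and 5.95 CPM in EXP (log2 fold change 4.05, SE 0.75, edgeR adjusted p 0.00154). In fits that left out 1 library, the calls numbered 3 without EXP replicate 1.

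Of 15 other collagens, 3 rose and 5 fell. Col12a1, which links fibrils and is known from loaded tissues, was at 7.42, 6.45 and 8.09 CPM in CTRL and 419, 199 and 382 CPM in EXP (log2 fold change 5.51, SE 0.82, edgeR adjusted p 4.40e-04). Col8a1, a short-chain collagen of vessels and wounds, was at 6.46, 4.23 and 7.28 CPM in CTRL and 297, 185 and 157 CPM in EXP (log2 fold change 5.15, SE 0.67, edgeR adjusted p 1.45e-04). Both lay far above the CTRL libraries in every EXP library. Col6a3 rose (1.21, adjusted p 0.0220), but the call of Col6a3 was lost without CTRL replicates 1, 2 and 3 or EXP replicates 1 and 3, with adjusted p up to 0.0844. Col15a1 was at 158, 168 and 187 CPM in CTRL and 16.6, 50.9 and 32.9 CPM in EXP (log2 fold change -2.35, SE 0.56, edgeR adjusted p 0.0101), and the call of Col15a1 was lost without EXP replicate 1, with adjusted p up to 0.0651. Col18a1 fell too (-1.18, adjusted p 0.0210), but the call of Col18a1 was lost without CTRL replicate 3 or EXP replicate 1, with adjusted p up to 0.114. Its calls numbered 4 without CTRL replicate 1, 5 without CTRL replicate 2, 3 without CTRL replicate 3, 2 without EXP replicate 1 and 4 without EXP replicate 3.

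Of 20 basement membrane genes, 0 rose and 1 fell, namely Col4a5, at 55.3, 30.4 and 40.8 CPM in CTRL and 2.2, 12.5 and 13.4 CPM in EXP (log2 fold change -2.17, SE 0.54, edgeR adjusted p 0.0117). Col4a1 was at 826, 606 and 799 CPM in CTRL and 1053, 819 and 1246 CPM in EXP, with overlap (adjusted p 0.192). Without EXP replicate 3 the list had 2 called members. With library totals 5 were higher and 1 lower.

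Enzymes that mature collagen rose in 5 and fell in 6 of 27 cases. P4ha2 and P4ha1 encode prolyl hydroxylases, which stabilise the collagen helix. P4ha2 was at 381, 323 and 464 CPM in CTRL and 80.2, 142 and 117 CPM in EXP (log2 fold change -1.78, SE 0.25, edgeR adjusted p 2.01e-04), and P4ha1 had a log2 fold change of -0.76 (adjusted p 0.00651). With totals the log2 fold change of P4ha2 was -1.34 and that of P4ha1 -0.29, the latter no longer past the threshold (adjusted p 0.200). Serpinh1, a collagen chaperone, fell (-1.4, adjusted p 0.0204), but the call of Serpinh1 was lost without CTRL replicate 3 or EXP replicates 1 and 3, with adjusted p up to 0.0926. The cross-linking oxidase Loxl1 was at 66.3, 87.4 and 88 CPM in CTRL and 242, 218 and 253 CPM in EXP (log2 fold change 1.56, SE 0.29, edgeR adjusted p 0.00173), and Loxl3 was at 4.95, 6.61 and 5.23 CPM in CTRL and 41.8, 26.5 and 81.8 CPM in EXP (log2 fold change 3.16, SE 0.75, edgeR adjusted p 0.00948). Plod2, a lysyl hydroxylase of cross-link sites, was at 0.253, 0.155 and 0.402 CPM in CTRL and 2.56, 4 and 3.85 CPM in EXP (log2 fold change 3.64, SE 0.71, edgeR adjusted p 0.00247). Lox was at 656, 373 and 624 CPM in CTRL and 994, 995 and 949.7 CPM in EXP and did not pass (adjusted p 0.0744). Both families held members that moved the other way. P4ha3, another prolyl hydroxylase gene, was at 0.455, 0.516 and 0.223 CPM in CTRL and 4.63, 5.91 and 7.17 CPM in EXP (log2 fold change 3.89, SE 0.98, edgeR adjusted p 0.0132), but the call of P4ha3 was lost without CTRL replicate 3, with adjusted p up to 0.0624. Loxl2, another lysyl oxidase relative, was at 191, 203 and 259 CPM in CTRL and 83.9, 105 and 118 CPM in EXP (log2 fold change -1.09, SE 0.3, edgeR adjusted p 0.0208), but the call of Loxl2 was lost without CTRL replicate 3 or EXP replicate 1, with adjusted p up to 0.116. Fits without 1 library gave 6 without CTRL replicate 3 and 6 without EXP replicate 1.

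Small leucine-rich proteoglycans coat collagen fibrils. Of 11 tested 2 fell and 0 rose. Dcn, which encodes decorin, was at 16620, 17300 and 17250 CPM in CTRL and 8727, 12490 and 9885 CPM in EXP (log2 fold change -0.72, SE 0.23, edgeR adjusted p 0.0456), but the call of Dcn was lost without CTRL replicates 1, 2 and 3 or EXP replicates 1 and 3, with adjusted p up to 0.191. Ecm2 fell (-2.16, adjusted p 0.00878), but the call of Ecm2 was lost without EXP replicate 1, with adjusted p up to 0.0537. Leaving out 1 library, the count of calls was 1 without CTRL replicate 1, 1 without CTRL replicate 2, 1 without CTRL replicate 3, 0 without EXP replicate 1 and 1 without EXP replicate 3. Lum was at 7059, 7093 and 7130 CPM in CTRL and 2988, 6444 and 3736 CPM in EXP and did not pass (adjusted p 0.230). Of 17 elastic fibre genes 2 rose and 3 fell. Fbn2, a fibrillin of developing tissue, was at 2.52, 8.26 and 3.53 CPM in CTRL and 22, 25.1 and 55.1 CPM in EXP (log2 fold change 2.84, SE 0.66, edgeR adjusted p 0.00806), and Efemp2, which helps to assemble elastin, was at 74.1, 103 and 114 CPM in CTRL and 361, 246 and 300 CPM in EXP (log2 fold change 1.64, SE 0.32, edgeR adjusted p 0.00249). The elastic fibre calls numbered 3 without CTRL replicate 2 and 2 without EXP replicate 1.

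Matricellular proteins signal to cells without building the matrix, and 7 of 21 tested rose while 3 fell. Tnc, the tenascin of wounds and tendons, was at 248, 74.3 and 201 CPM in CTRL and 10580, 2304 and 8978 CPM in EXP (log2 fold change 5.38, SE 1.13, edgeR adjusted p 0.00462). EXP replicate 2 was the lowest EXP library, and it still lay above the highest CTRL library. Postn, a wound protein that binds collagen, was at 98, 52.9 and 160.2 CPM in CTRL and 769, 529 and 566 CPM in EXP (log2 fold change 2.58, SE 0.5, edgeR adjusted p 0.00242). Spp1, which encodes osteopontin, was at 13.4, 4.75 and 12.3 CPM in CTRL and 67.2, 239.9 and 79.3 CPM in EXP (log2 fold change 3.66, SE 0.64, edgeR adjusted p 0.00131), and here EXP replicate 2 was the highest. Ccn3 was at 16, 23.4 and 31.8 CPM in CTRL and 190.2, 127 and 76.1 CPM in EXP (log2 fold change 2.47, SE 0.51, edgeR adjusted p 0.00406). All of these genes lay without overlap. Spon2, an adhesive protein of innate defence, was at 522, 628 and 552 CPM in CTRL and 3.28, 37.3 and 36.3 CPM in EXP (log2 fold change -4.47, SE 0.94, edgeR adjusted p 0.00464), and this fall remained with totals (-4.07, adjusted p 0.00313).

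Sparc, which binds collagen, fell (-1.61, adjusted p 0.0213), but the call of Sparc was lost without CTRL replicate 1 or EXP replicates 1 and 3, with adjusted p up to 0.115. Ccn2 rose (2.4, adjusted p 0.0169) and Ccn1 fell (-0.92, adjusted p 0.0361), 2 secreted relatives that YAP induces in many cells. However, the call of Ccn2 was lost without CTRL replicates 1, 2 and 3 or EXP replicate 1, with adjusted p up to 0.0723, and the call of Ccn1 was lost without CTRL replicates 1, 2 and 3 or EXP replicates 1 and 3, with adjusted p up to 0.143. Fn1 was at 842, 828 and 960.5 CPM in CTRL and 185, 527 and 764 CPM in EXP and did not pass (adjusted p 0.185). The called matricellular members numbered 5 without CTRL replicate 1, 6 without CTRL replicate 2, 5 without EXP replicate 1 and 6 without EXP replicate 3.

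Of 12 hyaluronan genes 3 rose and 1 fell. Has1, a hyaluronan synthase, was at 3719, 3574 and 4641 CPM in CTRL and 752, 1606 and 1037 CPM in EXP (log2 fold change -1.81, SE 0.31, edgeR adjusted p 9.33e-04), and its log2 fold change was -1.38 with totals (adjusted p 0.00213). Cemip, which degrades hyaluronan, was at 0.151, 0.103 and 0.223 CPM in CTRL and 6.5, 3.13 and 9.26 CPM in EXP (log2 fold change 5.25, SE 1.21, edgeR adjusted p 0.00766). Cemip2, its relative, was at 47.5, 34.3 and 41.5 CPM in CTRL and 141, 113 and 133 CPM in EXP (log2 fold change 1.65, SE 0.22, edgeR adjusted p 1.03e-04). The hyaluronan receptor Cd44 was at 189, 155 and 256 CPM in CTRL and 476, 443 and 382 CPM in EXP (log2 fold change 1.12, SE 0.21, edgeR adjusted p 0.00150). The other 8 members were not called. Tnfaip6, which modifies hyaluronan, was at 6736, 5813 and 6308 CPM in CTRL and 5158, 7636 and 4906 CPM in EXP, with overlap (adjusted p 0.850).

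Of 24 metalloproteinases and their inhibitors, 10 rose and 1 fell. Mmp13, the main collagenase of mice, was at 1.16, 0.258 and 1.03 CPM in CTRL and 192, 55.9 and 227 CPM in EXP (log2 fold change 7.58, SE 1.09, edgeR adjusted p 3.28e-04). Mmp3, which cuts many matrix proteins, was at 4023, 2339 and 2072 CPM in CTRL and 8743, 7527 and 8794 CPM in EXP (log2 fold change 1.57, SE 0.35, edgeR adjusted p 0.00538). Mmp8, a collagenase best known from neutrophils, was at 2.88, 1.08 and 1.39 CPM in CTRL and 18.1, 17.8 and 11 CPM in EXP (log2 fold change 3.13, SE 0.6, edgeR adjusted p 0.00231). Mmp8 made up 86% of the neutrophil marker sum given above, and other neutrophil markers were low or at 0. Of 3 neutrophil markers tested 2 were called higher and 0 lower, namely Mmp8 and S100a8. The part of neutrophil RNA in the rise of Mmp8 was not tested. Mmp12 had 2 counts in all CTRL libraries together and 279 in all EXP libraries, a scaled ratio of 105 (95% exact interval 28.7 to 870, counting error only), with an adjusted p of 0.00572. Mmp19 (1.49, adjusted p 0.00627), Mmp10 (1.92, adjusted p 0.00420), Mmp11 (1.88, adjusted p 0.00418) and Adamts15 (2.89, adjusted p 0.00184) also rose. The inhibitor Timp1 was at 54.2, 64.3 and 82 CPM in CTRL and 875, 471 and 551 CPM in EXP (log2 fold change 3.24, SE 0.37, edgeR adjusted p 3.73e-05), so proteases and an inhibitor rose in the same libraries. The gelatinase Mmp2 was at 7963, 6635 and 7346 CPM in CTRL and 5093, 6309 and 6093 CPM in EXP, with EXP below CTRL but not past the threshold (adjusted p 0.325).

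Plasminogen activation and clotting genes rose in 5 of 9 cases. F3, which encodes the clot-starting tissue factor, was at 10.8, 10.2 and 7.86 CPM in CTRL and 175, 81 and 233 CPM in EXP (log2 fold change 4.08, SE 0.59, edgeR adjusted p 3.28e-04). Plat, the tissue plasminogen activator, was at 38, 49 and 50 CPM in CTRL and 180, 139 and 240.1 CPM in EXP (log2 fold change 2.03, SE 0.41, edgeR adjusted p 0.00319), and its inhibitor gene Serpine2 rose by 1.28 on the log2 scale (adjusted p 0.00414). Plau (1.68, adjusted p 0.0328) and Thbd (1.79, adjusted p 0.0200) were called as well, but the call of Plau was lost in each of the 6 fits that left out a day 2 library, with adjusted p up to 0.117, and the call of Thbd was lost without CTRL replicates 1, 2 and 3 or EXP replicate 3, with adjusted p up to 0.129. Calls in this list numbered 3 without CTRL replicate 1, 3 without CTRL replicate 2, 3 without CTRL replicate 3 and 3 without EXP replicate 3.

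Contractile genes rose in 7 of 19 cases and fell in 0, with a median of 0.97. Tpm1, a tropomyosin, was at 60.4, 66.6 and 71.6 CPM in CTRL and 197, 135 and 215 CPM in EXP (log2 fold change 1.46, SE 0.25, edgeR adjusted p 8.38e-04). Actn1, which bundles actin, was at 1.11, 0.826 and 1.52 CPM in CTRL and 5.42, 4.44 and 5.83 CPM in EXP (log2 fold change 2.17, SE 0.5, edgeR adjusted p 0.00677). Cald1, a regulator of actin and myosin, rose by 1.06 on the log2 scale (adjusted p 0.00377). Acta2, the smooth muscle actin that marks myofibroblasts, was at 1.47, 6.04 and 2.32 CPM in CTRL and 30.8, 22.8 and 11.7 CPM in EXP (log2 fold change 2.73, SE 0.78, edgeR adjusted p 0.0247), but the call of Acta2 was lost without CTRL replicates 1 and 3 or EXP replicate 1, with adjusted p up to 0.106. The sum of 9 pericyte and smooth muscle markers was lower in EXP, as given above, with 1 of 8 tested markers called lower. The part of RNA from such cells in the contractile rises was not tested. In fits that left out 1 library, the calls numbered 3 without CTRL replicate 1 and 3 without EXP replicate 1.

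Integrins bind cells to the matrix, and 3 of 15 rose while 1 fell. Itga5, the fibronectin receptor chain, was at 164, 166 and 254 CPM in CTRL and 657, 409 and 513 CPM in EXP (log2 fold change 1.44, SE 0.32, edgeR adjusted p 0.00602). Itga1, a collagen receptor chain, was at 2.83, 9.19 and 5.9 CPM in CTRL and 37.2, 18.3 and 47.1 CPM in EXP (log2 fold change 2.52, SE 0.47, edgeR adjusted p 0.00176), and Itga7, a laminin receptor chain, was at 0.354, 2.74 and 1.47 CPM in CTRL and 14.3, 5.87 and 12.3 CPM in EXP (log2 fold change 2.83, SE 0.62, edgeR adjusted p 0.00507). Of 9 mechanosensitive channels, 1 rose and 2 fell. Tmem63a, a stretch-gated channel, was at 229.5, 190.5 and 232 CPM in CTRL and 74.3, 102 and 84.9 CPM in EXP (log2 fold change -1.32, SE 0.22, edgeR adjusted p 7.35e-04). Trpv4 was called higher (2.36, adjusted p 0.0191), but the call of Trpv4 was lost without CTRL replicates 2 and 3 or EXP replicates 1 and 3, with adjusted p up to 0.0902. Of 22 YAP and TAZ targets, 3 rose and 2 fell, so 5 of 22 were called in both directions together. The called members numbered 1 without CTRL replicate 1, 2 without CTRL replicate 2, 2 without CTRL replicate 3, 1 without EXP replicate 1 and 3 without EXP replicate 3 for YAP and TAZ targets, and 1 without CTRL replicate 2, 1 without CTRL replicate 3, 1 without EXP replicate 1 and 1 without EXP replicate 3 for channels.

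Of 29 TGF-beta and BMP genes 6 rose and 4 fell. Inhba, which forms activin A, was at 10.1, 12.3 and 15.7 CPM in CTRL and 232, 67 and 210.1 CPM in EXP (log2 fold change 3.73, SE 0.66, edgeR adjusted p 0.00130), and Fst, which binds and blocks activin, was at 36.2, 38 and 26.1 CPM in CTRL and 104, 93.2 and 64.8 CPM in EXP (log2 fold change 1.39, SE 0.31, edgeR adjusted p 0.00564). Ligand and antagonist thus rose together. Bambi, a decoy receptor of the family, was at 46.9, 37.1 and 43.5 CPM in CTRL and 9.49, 16.6 and 15.7 CPM in EXP (log2 fold change -1.61, SE 0.27, edgeR adjusted p 7.49e-04). Id3, a target of BMP signals, was at 637, 689 and 622 CPM in CTRL and 183, 355 and 227 CPM in EXP (log2 fold change -1.35, SE 0.29, edgeR adjusted p 0.00425). With totals the log2 fold change was -1.16 for Bambi and -0.92 for Id3, both still past the threshold. Tgfb1 was at 5.56, 7.79 and 7.68 CPM in CTRL and 5.22, 6.58 and 5.64 CPM in EXP and did not pass (adjusted p 0.719). Its calls numbered 6 without CTRL replicate 1, 4 without CTRL replicate 2 and 6 without EXP replicate 3.

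Of 30 Wnt genes 6 rose and 2 fell. Lgr5, a receptor for R-spondins that strengthens Wnt signals, was at 10.3, 9.81 and 19.3 CPM in CTRL and 182, 169.6 and 107 CPM in EXP (log2 fold change 3.54, SE 0.53, edgeR adjusted p 4.14e-04). Sfrp2 (4.26, adjusted p 0.0340) and Sfrp4 (4.1, adjusted p 0.0222), secreted Wnt binders, rose, and Wnt11 fell (-2.83, adjusted p 0.0283). However, the call of Sfrp2 was lost without CTRL replicates 1, 2 and 3 or EXP replicates 2 and 3, with adjusted p up to 0.123, the call of Sfrp4 was lost without CTRL replicates 2 and 3 or EXP replicates 1 and 3, with adjusted p up to 0.0959, and the call of Wnt11 was lost without CTRL replicates 1, 2 and 3 or EXP replicates 1 and 3, with adjusted p up to 0.112. Fits without 1 library gave 3 without CTRL replicate 1, 2 without CTRL replicate 2, 1 without CTRL replicate 3, 2 without EXP replicate 1 and 1 without EXP replicate 3.

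Of 11 IGF genes 2 rose and 2 fell. The binding proteins Igfbp5, at 548, 750.4 and 1016 CPM in CTRL and 52.2, 171 and 136 CPM in EXP (log2 fold change -2.69, SE 0.39, edgeR adjusted p 2.27e-04), and Igfbp6, at 741, 618 and 774 CPM in CTRL and 120, 257 and 215 CPM in EXP (log2 fold change -1.85, SE 0.42, edgeR adjusted p 0.00700), fell. With totals these falls were -2.27 and -1.41. Igfbp4 rose (2.37, adjusted p 0.0135), but the call of Igfbp4 was lost without CTRL replicates 1 and 2 or EXP replicate 1, with adjusted p up to 0.0622. The called IGF members numbered 2 without CTRL replicate 2 and 2 without EXP replicate 1. Among 15 PDGF and VEGF genes 4 rose and 1 fell. Vegfd, a growth factor of lymph vessels, was at 1.57, 1.91 and 4.16 CPM in CTRL and 12.4, 13.9 and 21.3 CPM in EXP (log2 fold change 2.63, SE 0.55, edgeR adjusted p 0.00390), whereas Vegfa was at 76.6, 59.8 and 36.3 CPM in CTRL and 27.8, 41.4 and 36.9 CPM in EXP and did not pass (adjusted p 0.462). Angpt4, a ligand of the TIE2 receptor, was at 2.83, 5.32 and 7.95 CPM in CTRL and 112, 62.9 and 126 CPM in EXP (log2 fold change 4.22, SE 1.02, edgeR adjusted p 0.0104), but the call of Angpt4 was lost without CTRL replicates 1 and 2, with adjusted p up to 0.0533. The called PDGF and VEGF members numbered 3 without CTRL replicate 3.

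Of 10 EGF family and HGF genes 3 rose. Ereg, which encodes epiregulin, was at 7.47, 1.39 and 1.07 CPM in CTRL and 83.9, 30.7 and 81.8 CPM in EXP (log2 fold change 4.31, SE 1.02, edgeR adjusted p 0.00909), but the call of Ereg was lost without CTRL replicate 2, with adjusted p up to 0.0535. The number of called members was 0 without CTRL replicate 2, 1 without CTRL replicate 3 and 1 without EXP replicate 1. Of 13 fibroblast growth factors and receptors in their own list, 0 were called in edgeR, also without any 1 library, with 2 at an unadjusted p under 0.05, 1 called in DESeq2 and 3 in limma voom. The receptor gene Fgfr1 was at 148, 112 and 108 CPM in CTRL and 135, 203 and 267 CPM in EXP, with overlap (adjusted p 0.236).

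Cholesterol synthesis genes rose in 17 of 21 cases and fell in 0, with a median log2 fold change of 1.97. In the fits that left out a library, 16 to 17 were called. Hmgcs1, an early enzyme of the pathway, was at 39.4, 33.5 and 40.7 CPM in CTRL and 224, 190.1 and 128 CPM in EXP (log2 fold change 2.25, SE 0.38, edgeR adjusted p 8.50e-04). All EXP libraries lay above all CTRL libraries. Further along, Idi1 was at 4.9, 4.39 and 4.87 CPM in CTRL and 72.8, 54.4 and 40.9 CPM in EXP (log2 fold change 3.57, SE 0.52, edgeR adjusted p 3.28e-04), and Sqle, which makes squalene epoxide, was at 8.28, 8.78 and 9.65 CPM in CTRL and 148, 116 and 75.4 CPM in EXP (log2 fold change 3.67, SE 0.45, edgeR adjusted p 7.21e-05). Lss, which closes the sterol rings, was at 2.07, 3.35 and 2.06 CPM in CTRL and 56.2, 26.9 and 21.6 CPM in EXP (log2 fold change 3.81, SE 0.51, edgeR adjusted p 1.33e-04). Rises were thus seen at early and later steps of the pathway, and EXP replicate 1 was the highest library for each of these genes. EXP replicate 1 also had the highest adipocyte marker sum, and without it 16 cholesterol genes were called. The part of adipocyte RNA in these rises was not tested. Dhcr7 was at 2.07, 4.13 and 3.8 CPM in CTRL and 10.6, 10.9 and 6.98 CPM in EXP and missed the threshold (adjusted p 0.0595). Pmvk was called (1.43, adjusted p 0.0300), but the call of Pmvk was lost without CTRL replicates 1, 2 and 3 or EXP replicates 1 and 2, with adjusted p up to 0.172. Acat2 has a close paralog, and its values (2.39, adjusted p 1.29e-05) are uncertain to that extent.

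**Figure D4:**
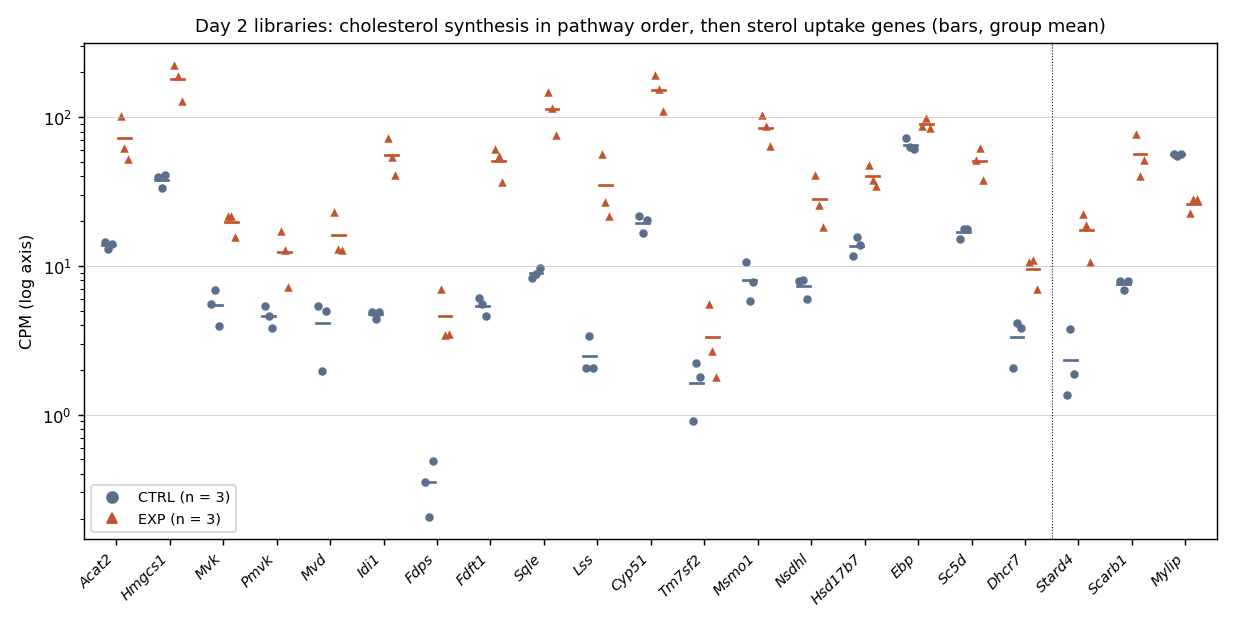
Level of cholesterol synthesis genes in pathway order and, right of the dotted line, of genes of sterol uptake and transport in each day 2 library, in CPM on a log axis (CTRL circles, EXP triangles, n = 3 each, bars at group means). EXP libraries lie above CTRL for each synthesis gene shown except Tm7sf2, where they overlap, as they do for Ggps1, which is not drawn, and Mylip is the 1 gene shown that is lower.

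The promoters of Hmgcs1 and Lss are shown because both genes rose. Capitals mark a sterol element TCACNCCAC and the box CCAAT, each searched on both strands, in the same kind of RefSeq window of 300 bases (GRCm38.p6).
Hmgcs1, chr13:119690101-119690400, plus strand: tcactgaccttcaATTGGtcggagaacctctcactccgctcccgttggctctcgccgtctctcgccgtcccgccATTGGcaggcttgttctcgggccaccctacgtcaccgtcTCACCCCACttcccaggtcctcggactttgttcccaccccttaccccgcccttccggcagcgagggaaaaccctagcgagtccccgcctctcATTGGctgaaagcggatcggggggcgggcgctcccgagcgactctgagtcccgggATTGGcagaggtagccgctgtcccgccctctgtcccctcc
Lss, chr10:76531355-76531654, plus strand: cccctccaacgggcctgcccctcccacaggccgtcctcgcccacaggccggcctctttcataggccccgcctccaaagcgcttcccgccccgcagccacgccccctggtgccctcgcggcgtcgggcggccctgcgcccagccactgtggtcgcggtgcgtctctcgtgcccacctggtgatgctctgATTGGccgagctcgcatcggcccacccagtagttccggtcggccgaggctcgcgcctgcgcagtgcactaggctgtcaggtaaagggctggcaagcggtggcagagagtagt
TCACNCCAC occurred in Hmgcs1, 137 bases before the start, and in no other of the 19 promoters found for the list (5.26%), against 1.24% of all promoters. CCAAT occurred 4 times in Hmgcs1 and 1 time in Lss, and in 15 of the 19 promoters (78.9%), against 37.4% of all promoters. These are counts of letters, and no match says only that those letters are not in the window.

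In the list of sterol uptake, control and efflux, 6 of 16 rose and 2 fell. Scarb1, the HDL receptor, was at 7.93, 6.92 and 7.95 CPM in CTRL and 77.4, 40 and 51.3 CPM in EXP (log2 fold change 2.89, SE 0.24, edgeR adjusted p 5.89e-07), among the smallest p-values of all genes. Stard4, which carries cholesterol in the cell, was at 1.36, 3.77 and 1.88 CPM in CTRL and 22.4, 19 and 10.7 CPM in EXP (log2 fold change 2.9, SE 0.6, edgeR adjusted p 0.00391), and the regulator Srebf2 rose by 1.03 on the log2 scale (adjusted p 0.00410). Mylip, a ubiquitin ligase induced by LXR, was at 56.7, 55.2 and 57 CPM in CTRL and 22.6, 28.1 and 28 CPM in EXP (log2 fold change -1.1, SE 0.24, edgeR adjusted p 0.00470), though with totals its fall of -0.64 did not pass (adjusted p 0.0817). Insig1, which holds SREBP back, rose (1.46, adjusted p 0.0287), but the call of Insig1 was lost in each of the 6 fits that left out a day 2 library, with adjusted p up to 0.114.

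Fatty acid genes rose in 8 of 14 cases and fell in 0. Fads2, a desaturase of polyunsaturated fats, was at 2.88, 4.13 and 3.62 CPM in CTRL and 64.4, 31.8 and 31.7 CPM in EXP (log2 fold change 3.59, SE 0.49, edgeR adjusted p 1.76e-04). Acly, which makes cytosolic acetyl-CoA, was at 97.4, 74.5 and 81.2 CPM in CTRL and 251, 160.1 and 226 CPM in EXP (log2 fold change 1.33, SE 0.22, edgeR adjusted p 8.38e-04), and Fasn, the fatty acid synthase, was at 127, 109 and 125 CPM in CTRL and 296, 211 and 224 CPM in EXP (log2 fold change 1.01, SE 0.22, edgeR adjusted p 0.00477). The fatty acid calls numbered 5 without EXP replicate 1. Elovl6 rose (2.0, adjusted p 0.0185), but the call of Elovl6 was lost without CTRL replicates 1 and 2 or EXP replicate 1, with adjusted p up to 0.0825.

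Mitosis genes rose in 15 of 30 cases and fell in 0, with a median log2 fold change of 2.42, and in 26 of the 30 all EXP libraries lay above all CTRL libraries (21.2% of all genes did). Spc24, a kinetochore protein, was at 0.404, 0.361 and 1.16 CPM in CTRL and 8.17, 12.5 and 10.3 CPM in EXP (log2 fold change 3.98, SE 0.68, edgeR adjusted p 8.69e-04). Cdca8, which encodes borealin, was at 0.556, 0.929 and 2.15 CPM in CTRL and 6.6, 7.65 and 6.14 CPM in EXP (log2 fold change 2.48, SE 0.55, edgeR adjusted p 0.00578). Cdk1, the kinase that starts mitosis, was at 0.101, 0.671 and 3.53 CPM in CTRL and 11.4, 15.9 and 15.4 CPM in EXP (log2 fold change 3.28, SE 0.82, edgeR adjusted p 0.0125), but the call of Cdk1 was lost without CTRL replicate 2, with adjusted p up to 0.0684. CTRL libraries differed widely, with replicate 3 the highest for Cdk1. Mki67, the usual marker of cycling cells, was at 0.808, 1.45 and 2.9 CPM in CTRL and 9.39, 10.5 and 12.3 CPM in EXP (log2 fold change 2.63, SE 0.71, edgeR adjusted p 0.0192), but the call of Mki67 was lost without CTRL replicates 1 and 2 or EXP replicates 1 and 3, with adjusted p up to 0.0879. Prc1, which bundles spindle microtubules, was at 1.01, 0.619 and 4.69 CPM in CTRL and 10.7, 15.6 and 13.6 CPM in EXP (log2 fold change 2.64, SE 0.74, edgeR adjusted p 0.0227), but the call of Prc1 was lost without CTRL replicates 1 and 2 or EXP replicates 1 and 3, with adjusted p up to 0.102. Top2a was at 0.253, 1.08 and 8.71 CPM in CTRL and 18, 29.8 and 24.3 CPM in EXP and did not pass (adjusted p 0.0562). The mitosis calls numbered 3 without CTRL replicate 1, 3 without CTRL replicate 2, 8 without EXP replicate 1 and 8 without EXP replicate 3. Without CTRL replicate 3, which had the highest mitotic levels of its group, the log2 fold change was 5.19 for Cdk1 and 4.02 for Prc1.

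The promoters of Cdk1 and Prc1 are shown because both are mitotic genes described above, whose calls depended on single libraries. Capitals mark CCAAT and the CHR type letters TTTGAA, searched on both strands, in RefSeq windows of 300 bases (GRCm38.p6). Each sequence is on its gene's strand.
Cdk1, chr10:69352863-69353162, minus strand: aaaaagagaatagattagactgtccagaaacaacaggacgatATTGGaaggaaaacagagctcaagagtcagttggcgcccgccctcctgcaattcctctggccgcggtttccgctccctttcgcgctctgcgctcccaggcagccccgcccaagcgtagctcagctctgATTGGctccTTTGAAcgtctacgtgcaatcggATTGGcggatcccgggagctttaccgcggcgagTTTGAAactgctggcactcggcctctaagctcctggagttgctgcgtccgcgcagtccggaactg
Prc1, chr7:80294201-80294500, plus strand: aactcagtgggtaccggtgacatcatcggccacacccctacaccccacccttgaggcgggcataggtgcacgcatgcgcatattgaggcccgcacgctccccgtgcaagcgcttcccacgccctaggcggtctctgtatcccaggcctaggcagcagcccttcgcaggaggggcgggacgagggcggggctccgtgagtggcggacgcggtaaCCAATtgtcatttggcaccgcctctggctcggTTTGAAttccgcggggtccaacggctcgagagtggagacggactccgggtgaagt
TTTGAA was present in 19 of 25 promoters found for the mitosis list (76.0%), in 4 of 34 for the DNA replication list (11.8%) and in 17.9% of all promoters. CCAAT was present in 20 of 25 (80.0%) and 21 of 34 (61.8%), against 37.4% of all. In Cdk1 the TTTGAA matches begin 71 and 15 bases before the start, and in Prc1 the match begins 5 bases before it.

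DNA replication genes rose in 22 of 38 cases and fell in 0, with a median of 1.42. Mcm5, a part of the replicative helicase, was at 1.41, 2.43 and 4.33 CPM in CTRL and 49, 25 and 29.3 CPM in EXP (log2 fold change 3.65, SE 0.61, edgeR adjusted p 8.69e-04), and Mcm2 was at 2.48, 0.568 and 7.19 CPM in CTRL and 46.5, 23.8 and 28.9 CPM in EXP (log2 fold change 3.26, SE 0.69, edgeR adjusted p 0.00482). Rrm2, which makes deoxynucleotides, was at 4.45, 4.28 and 10.2 CPM in CTRL and 76.7, 61.1 and 57.6 CPM in EXP (log2 fold change 3.36, SE 0.56, edgeR adjusted p 8.38e-04). Pole, a leading strand polymerase, was at 0.404, 0.103 and 1.03 CPM in CTRL and 12.4, 7.69 and 7.97 CPM in EXP (log2 fold change 4.16, SE 0.84, edgeR adjusted p 0.00351). EXP replicate 1 was the highest library for each of these genes, whereas for Spc24 and Cdk1 it was the lowest EXP library. Leaving out 1 library, the count of calls was 14 without CTRL replicate 2 and 13 without EXP replicate 1. Other members of the helicase, Mcm3 (2.29, adjusted p 6.00e-04), Mcm4 (1.99, adjusted p 0.00102), Mcm6 (2.41, adjusted p 7.47e-04) and Mcm7 (1.75, adjusted p 0.00108), also rose.

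Genes of the G1 phase were mixed, with 3 of 23 higher and 5 lower. E2f3, an activator of S phase genes, was at 1.26, 0.774 and 1.43 CPM in CTRL and 5.71, 5.04 and 5.72 CPM in EXP (log2 fold change 2.24, SE 0.38, edgeR adjusted p 8.38e-04). Ccnd2, which encodes cyclin D2, was at 145, 115 and 172 CPM in CTRL and 62, 81 and 74.4 CPM in EXP (log2 fold change -0.99, SE 0.23, edgeR adjusted p 0.00687). Cdkn2d, an inhibitor of CDK4 and CDK6, was at 28.9, 31.1 and 31.3 CPM in CTRL and 9.98, 17.9 and 13.5 CPM in EXP (log2 fold change -1.14, SE 0.23, edgeR adjusted p 0.00256), and Rbl2, a pocket protein of resting cells, was at 54.4, 30.2 and 44.5 CPM in CTRL and 19.4, 22.4 and 22.1 CPM in EXP (log2 fold change -1.02, SE 0.21, edgeR adjusted p 0.00376). With totals these 3 falls were -0.53, -0.7 and -0.54, still past the threshold. Cdkn1a, which encodes p21, was at 806, 1048 and 917 CPM in CTRL and 532, 508 and 499 CPM in EXP (log2 fold change -0.85, SE 0.21, edgeR adjusted p 0.0113), but the call of Cdkn1a was lost without CTRL replicate 2, with adjusted p up to 0.0579, and with totals the fall of -0.39 did not pass (adjusted p 0.275). Calls in this list numbered 5 without EXP replicate 1.

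Ribosome biogenesis genes, which supply growing cells, rose in 16 of 28 cases and fell in 0, with a median of 0.82. Polr1a, the largest subunit of RNA polymerase I, was at 11.2, 4.8 and 7.91 CPM in CTRL and 30.7, 18.7 and 21.4 CPM in EXP (log2 fold change 1.57, SE 0.36, edgeR adjusted p 0.00729). Rrp12 was at 24.1, 13.2 and 26.3 CPM in CTRL and 70.3, 50.3 and 57.3 CPM in EXP (log2 fold change 1.48, SE 0.33, edgeR adjusted p 0.00554), and Nhp2, a part of box H/ACA particles, rose by 1.31 on the log2 scale (adjusted p 4.57e-04). The ribosome biogenesis calls numbered 9 without EXP replicate 1. Ncl, which encodes nucleolin, was at 212, 219.8 and 222 CPM in CTRL and 342, 314 and 283 CPM in EXP, without overlap but not past the threshold (adjusted p 0.0692).

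In folate metabolism 6 of 14 genes rose and 0 fell. Aldh1l1, which oxidises a formyl folate, was at 0.303, 0.929 and 0.402 CPM in CTRL and 38.5, 23.8 and 28.2 CPM in EXP (log2 fold change 5.79, SE 0.46, edgeR adjusted p 4.10e-07), the smallest p-value on day 2. Mthfd1, which interconverts folates in the cytosol, was at 11.4, 6.81 and 10.6 CPM in CTRL and 50.7, 30.1 and 37.8 CPM in EXP (log2 fold change 2.04, SE 0.34, edgeR adjusted p 7.82e-04), and Mthfd1l, its mitochondrial relative, rose by 1.65 on the log2 scale (adjusted p 0.00621). Mthfd2 was at 93.2, 65.7 and 86.5 CPM in CTRL and 102, 86.8 and 76.6 CPM in EXP, with overlap (adjusted p 0.803). The folate calls numbered 3 without EXP replicate 1.

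Of 17 amino acid and serine synthesis genes 5 rose and 2 fell. Psph, the last enzyme of serine synthesis, was at 7.68, 7.28 and 7.86 CPM in CTRL and 19.9, 15.7 and 17.8 CPM in EXP (log2 fold change 1.23, SE 0.22, edgeR adjusted p 0.00130). Pycr1, the last enzyme of proline synthesis, was at 64.4, 52.4 and 71.8 CPM in CTRL and 10.6, 25.6 and 16.4 CPM in EXP (log2 fold change -1.84, SE 0.44, edgeR adjusted p 0.00927), but the call of Pycr1 was lost without EXP replicate 1, with adjusted p up to 0.0661. Aldh18a1, an earlier proline enzyme, also fell (-0.72, adjusted p 0.0210), but the call of Aldh18a1 was lost without CTRL replicates 1 and 3 or EXP replicates 1, 2 and 3, with adjusted p up to 0.0833. In fits that left out 1 library, the calls numbered 4 without CTRL replicate 1, 4 without CTRL replicate 2, 4 without CTRL replicate 3, 1 without EXP replicate 1 and 4 without EXP replicate 2.

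Glycolysis and hypoxia genes rose in 8 and fell in 3 of 25 cases. Pkm, the pyruvate kinase gene, was at 377, 276 and 426 CPM in CTRL and 1281, 704 and 1082 CPM in EXP (log2 fold change 1.51, SE 0.28, edgeR adjusted p 0.00151). Pfkfb4, which tunes glycolysis, was at 82.1, 80.6 and 83.8 CPM in CTRL and 23.1, 32 and 24.2 CPM in EXP (log2 fold change -1.64, SE 0.39, edgeR adjusted p 0.00833). Ldha rose by 0.72 on the log2 scale (adjusted p 0.00821), but the call of Ldha was lost without CTRL replicate 2, with adjusted p up to 0.0509. Vegfa, a common hypoxia target, did not pass, as given above. Its calls numbered 6 without CTRL replicate 1, 2 without CTRL replicate 2, 3 without EXP replicate 1 and 7 without EXP replicate 3. Of the pentose phosphate genes, Tkt was at 47.1, 37.9 and 48.1 CPM in CTRL and 122, 87.1 and 113 CPM in EXP (log2 fold change 1.28, SE 0.16, edgeR adjusted p 9.10e-05) and G6pdx at 39, 31.4 and 28.1 CPM in CTRL and 69.6, 59.8 and 73 CPM in EXP (log2 fold change 1.04, SE 0.17, edgeR adjusted p 8.38e-04).

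Of 28 nuclear genes of the respiratory chain 2 rose and 0 fell, and with library totals 21 were higher. Uqcrc1 (0.64, adjusted p 0.00910) and Atp5b (0.71, adjusted p 0.0130) were these 2, but the call of Uqcrc1 was lost without EXP replicate 1, with adjusted p up to 0.0827, and the call of Atp5b was lost without CTRL replicate 2 or EXP replicate 1, with adjusted p up to 0.0804. Fits without 1 library gave 1 without CTRL replicate 2 and 0 without EXP replicate 1. Of 13 iron genes 3 rose and 1 fell. Cybrd1, an iron reductase, was at 28.2, 21.7 and 56.9 CPM in CTRL and 0.689, 5.99 and 1.49 CPM in EXP (log2 fold change -3.72, SE 0.82, edgeR adjusted p 0.00612), and Slc39a14, a transporter of iron and zinc, was at 151, 149 and 138 CPM in CTRL and 544, 257 and 384 CPM in EXP (log2 fold change 1.44, SE 0.31, edgeR adjusted p 0.00449). The called iron members numbered 2 without CTRL replicate 2, 2 without EXP replicate 1 and 2 without EXP replicate 3. Of 15 genes of the NRF2 antioxidant response 3 rose and 1 fell, and these calls numbered 2 without CTRL replicate 1, 2 without CTRL replicate 2, 2 without EXP replicate 1 and 2 without EXP replicate 3.

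Immediate early genes are switched on within minutes of a stimulus, including cell isolation. Of 21 tested, 7 fell and 1 rose, with a median log2 fold change of -0.93, and in 15 all EXP libraries lay below all CTRL libraries (18.1% of all genes did). Atf3, a stress factor, was at 1274, 1879 and 1324 CPM in CTRL and 233, 307 and 332 CPM in EXP (log2 fold change -2.36, SE 0.3, edgeR adjusted p 7.21e-05). Nr4a1, an orphan nuclear receptor, was at 1869, 1793 and 2211 CPM in CTRL and 729.9, 794 and 586 CPM in EXP (log2 fold change -1.48, SE 0.32, edgeR adjusted p 0.00431), and Klf4 was at 449, 768 and 538 CPM in CTRL and 119, 286 and 144 CPM in EXP (log2 fold change -1.68, SE 0.36, edgeR adjusted p 0.00444). With totals these falls were -1.92, -1.01 and -1.27, all past the threshold. Fos was at 2247, 3079 and 2652 CPM in CTRL and 1425, 1393 and 1532 CPM in EXP and did not pass (adjusted p 0.0686), nor did Egr1, at 1130, 1771 and 1070 CPM in CTRL and 610.1, 629.9 and 847 CPM in EXP (adjusted p 0.169). The 1 rise was Ier3 (0.97, adjusted p 0.0176), but the call of Ier3 was lost without CTRL replicates 2 and 3 or EXP replicates 1 and 3, with adjusted p up to 0.0879. The called members numbered 4 without CTRL replicate 2, 4 without EXP replicate 1 and 4 without EXP replicate 3, and with library totals 1 was higher and 3 lower. Ier2 fell (-1.16, adjusted p 0.00406), though with totals its fall of -0.7 did not pass (adjusted p 0.0598). The part of cell isolation in these falls was not tested.

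Heat shock genes help proteins fold, and of 16 tested 3 rose and 4 fell. Hspd1, the chaperonin of mitochondria, was at 52.9, 47.4 and 49.2 CPM in CTRL and 117, 95 and 93.8 CPM in EXP (log2 fold change 1.03, SE 0.18, edgeR adjusted p 9.55e-04), and Hspa9, the HSP70 of mitochondria, was at 291, 215 and 249 CPM in CTRL and 512, 390 and 388 CPM in EXP (log2 fold change 0.77, SE 0.17, edgeR adjusted p 0.00491). Dnajb1, a cochaperone of the cytosol, was at 226, 274 and 232 CPM in CTRL and 118, 116 and 125 CPM in EXP (log2 fold change -1.02, SE 0.15, edgeR adjusted p 2.07e-04), and Bag3 was at 249, 279 and 251 CPM in CTRL and 136, 175 and 134 CPM in EXP (log2 fold change -0.81, SE 0.17, edgeR adjusted p 0.00399). With totals the fall of Bag3 was -0.36 and did not pass (adjusted p 0.138). Leaving out 1 library, the count of calls was 4 without EXP replicate 1 and 4 without EXP replicate 3.

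Of 21 genes of protein folding in the endoplasmic reticulum 0 were called in edgeR, with 9 at an unadjusted p under 0.05, 2 called in DESeq2 and 9 in limma voom. When library totals were used 10 were called, all higher. Hspa5, which encodes BiP, was at 2115, 1706 and 2347 CPM in CTRL and 2139, 1851 and 2029 CPM in EXP, with overlap (adjusted p 0.939). Pdia6, a disulfide isomerase, was at 226, 258 and 333 CPM in CTRL and 616, 364 and 460.3 CPM in EXP and did not pass (adjusted p 0.0568). Of 17 clock genes 2 fell, and Cry2, a repressor of the clock, was at 214, 246 and 309 CPM in CTRL and 101, 83.3 and 93.7 CPM in EXP (log2 fold change -1.47, SE 0.33, edgeR adjusted p 0.00588). Arntl fell as well (-0.95, adjusted p 0.0361), but the call of Arntl was lost without CTRL replicates 1, 2 and 3 or EXP replicates 1 and 3, with adjusted p up to 0.174. The called clock members numbered 1 without CTRL replicate 1, 1 without CTRL replicate 2, 1 without CTRL replicate 3, 1 without EXP replicate 1 and 1 without EXP replicate 3. Of 13 glucocorticoid and metallothionein genes 1 rose and 1 fell. Hsd11b1, which regenerates active glucocorticoid, was at 162, 134 and 127 CPM in CTRL and 351, 426 and 247 CPM in EXP (log2 fold change 1.28, SE 0.27, edgeR adjusted p 0.00408). Klf9, a glucocorticoid target, fell (-0.77, adjusted p 0.0452), but the call of Klf9 was lost without CTRL replicates 1, 2 and 3 or EXP replicates 1 and 3, with adjusted p up to 0.192. The glucocorticoid calls numbered 1 without CTRL replicate 1, 1 without CTRL replicate 2, 1 without CTRL replicate 3, 1 without EXP replicate 1 and 1 without EXP replicate 3.

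Markers of fibroblast subsets fell more often than they rose, with 5 lower and 1 higher of 16 progenitor and fascia genes. Dpp4, a marker of wound-repairing and fascia progenitors, was at 315, 224 and 343 CPM in CTRL and 69, 96.1 and 115 CPM in EXP (log2 fold change -1.66, SE 0.31, edgeR adjusted p 0.00171). Creb5 was at 87.3, 124 and 101 CPM in CTRL and 13.2, 28.6 and 23 CPM in EXP (log2 fold change -2.27, SE 0.32, edgeR adjusted p 1.95e-04). With totals the log2 fold changes were -1.19 and -1.85, both past the threshold. Cd34, which was used in the sort, and Cd55 belong to this list too and are given above. Cd248 fell (-1.25, adjusted p 0.0486), but the call of Cd248 was lost in each of the 6 fits that left out a day 2 library, with adjusted p up to 0.210. Plac8 was the 1 rise, at 0.151, 0.619 and 0.179 CPM in CTRL and 15.5, 3.88 and 22 CPM in EXP (log2 fold change 5.45, SE 1.38, edgeR adjusted p 0.0136), but the call of Plac8 was lost without CTRL replicates 1 and 3, with adjusted p up to 0.0616. Ly6a, which encodes SCA1, was at 1723, 1993 and 2291 CPM in CTRL and 1391, 1741 and 1680 CPM in EXP, with overlap (adjusted p 0.518). The called members numbered 4 without CTRL replicate 1.

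Of 28 dermal lineage transcription factors 5 rose and 2 fell. Runx1 was at 28.2, 34.7 and 27.8 CPM in CTRL and 84.9, 75.8 and 90.4 CPM in EXP (log2 fold change 1.47, SE 0.31, edgeR adjusted p 0.00387), and Runx2, which drives bone formation, was at 1.16, 0.413 and 0.67 CPM in CTRL and 8.07, 5.39 and 4.73 CPM in EXP (log2 fold change 3.01, SE 0.5, edgeR adjusted p 7.68e-04). Osr2, a factor of connective tissue development, was at 747, 941 and 739 CPM in CTRL and 260.3, 319 and 264 CPM in EXP (log2 fold change -1.52, SE 0.27, edgeR adjusted p 0.00117), and with totals its log2 fold change was -1.08 (adjusted p 0.00262). Pparg, the regulator of fat cell fate, was at 0.657, 0.671 and 0.402 CPM in CTRL and 4.14, 3.33 and 4.23 CPM in EXP (log2 fold change 2.75, SE 0.82, edgeR adjusted p 0.0305), but the call of Pparg was lost without CTRL replicates 1, 2 and 3 or EXP replicates 1 and 3, with adjusted p up to 0.110. The adipocyte markers were raised mainly in EXP replicate 1, where Cidec reached 17.53 CPM against 1.031 and 1.144 CPM in the other EXP libraries. The part of adipocyte RNA in the rise of Pparg was not tested. Calls in this list numbered 4 without EXP replicate 1.

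Several of the strongest changes lay outside these lists. Cpxm1, a secreted carboxypeptidase relative, was at 636, 609 and 663 CPM in CTRL and 5369, 2975 and 3691 CPM in EXP (log2 fold change 2.66, SE 0.27, edgeR adjusted p 8.68e-06). Lgmn, a lysosomal protease, was at 69.3, 50.6 and 79.3 CPM in CTRL and 444, 323 and 384 CPM in EXP (log2 fold change 2.53, SE 0.29, edgeR adjusted p 3.73e-05), and Sema6d, a membrane-bound guidance protein, was at 22.4, 19.7 and 27.8 CPM in CTRL and 81, 88.9 and 91.3 CPM in EXP (log2 fold change 1.9, SE 0.2, edgeR adjusted p 1.29e-05). All EXP libraries lay above all CTRL libraries for each of these genes. Arhgdib, which holds small GTPases inactive, was at 2.58, 3.82 and 4.11 CPM in CTRL and 41.9, 44.5 and 29 CPM in EXP (log2 fold change 3.45, SE 0.34, edgeR adjusted p 8.68e-06). Wfdc17, a small secreted protein, was at 0.253, 0.206 and 0.0894 CPM in CTRL and 45.2, 12.7 and 17.9 CPM in EXP (log2 fold change 7.1, SE 1.23, edgeR adjusted p 0.00116), and the carbonic anhydrase Car4 at 0.253, 0 and 0 CPM in CTRL and 29.9, 1.51 and 36.9 CPM in EXP (log2 fold change 8.04, SE 1.66, edgeR adjusted p 0.00420). EXP libraries spread widely for Car4, and its log2 fold change was 12.22 without CTRL replicate 1, which held all of its CTRL counts.

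Among the falls, Fhl1, a LIM protein of muscle and stretch, was at 177, 189.5 and 321 CPM in CTRL and 13, 22.9 and 28.6 CPM in EXP (log2 fold change -3.42, SE 0.44, edgeR adjusted p 1.03e-04). Pik3r6, a regulatory subunit of PI3K gamma, was at 10.5, 13.2 and 6.39 CPM in CTRL and 0.0328, 0.952 and 0.534 CPM in EXP (log2 fold change -4.32, SE 0.84, edgeR adjusted p 0.00249). The long noncoding RNA Miat was at 22.2, 27.3 and 45 CPM in CTRL and 1.15, 3.69 and 2.36 CPM in EXP (log2 fold change -3.72, SE 0.62, edgeR adjusted p 8.50e-04). EXP replicate 1 was the lowest library for all of these. Lurap1l was at 15.5, 17.5 and 16 CPM in CTRL and 1.38, 3.05 and 4.23 CPM in EXP (log2 fold change -2.5, SE 0.36, edgeR adjusted p 2.15e-04) and Lgi3 at 9.75, 13.6 and 16.4 CPM in CTRL and 0.656, 1.74 and 2.13 CPM in EXP (log2 fold change -3.13, SE 0.51, edgeR adjusted p 7.35e-04). Pkp1, which encodes a desmosome protein of epithelium, fell (-3.53, adjusted p 0.0152), but the call of Pkp1 was lost without CTRL replicate 3 or EXP replicates 1 and 2, with adjusted p up to 0.0854. The keratinocyte marker sum was lower in EXP as well, at 6.34 to 7.29 CPM against 10.8 to 47.8 CPM, and its part in the fall of Pkp1 was not tested. All of these genes lay without overlap between the groups.

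On day 1 13.6% of genes were called higher and 14.9% lower, and on day 4 13.6% and 8.96%. The day 2 effect was then tested against the effects on the other days. It differed from day 1 (4 CTRL and 5 EXP libraries) for 532 genes, 3.03% of those tested, of which 456 had the higher value on day 2 (2.60%) and 76 the lower (0.433%). It differed from day 4 (4 CTRL and 3 EXP libraries) for 0 genes in edgeR, with 1157 at an unadjusted p under 0.05, 35 in DESeq2 and 13 in limma voom. The smallest adjusted p against day 4 was 0.0874. Without a single day 2 library the count against day 1 was 179 (CTRL replicate 1), 172 (CTRL replicate 2), 291 (CTRL replicate 3), 245 (EXP replicate 1) and 205 (EXP replicate 3). The labels name no batches, so batches that followed the days and touched CTRL and EXP unequally cannot be told apart from this difference.

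Of the genes called on day 2, 400 were called on neither other day, and for 45 of these the difference from day 1 itself passed. By direction, 86 genes with a passed difference were higher on day 2 and lower on day 1, and 4 were lower on day 2 and higher on day 1. Of the 30 mitosis genes 28 differed between the days, and of the 38 DNA replication genes 20 did, all with the higher value on day 2. The median mitosis log2 fold change was -3.48 on day 1, 2.42 on day 2 and 3.15 on day 4. For Spc24 the difference was 7.31 (SE 0.88, adjusted p 4.87e-04).

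**Figure D5:**
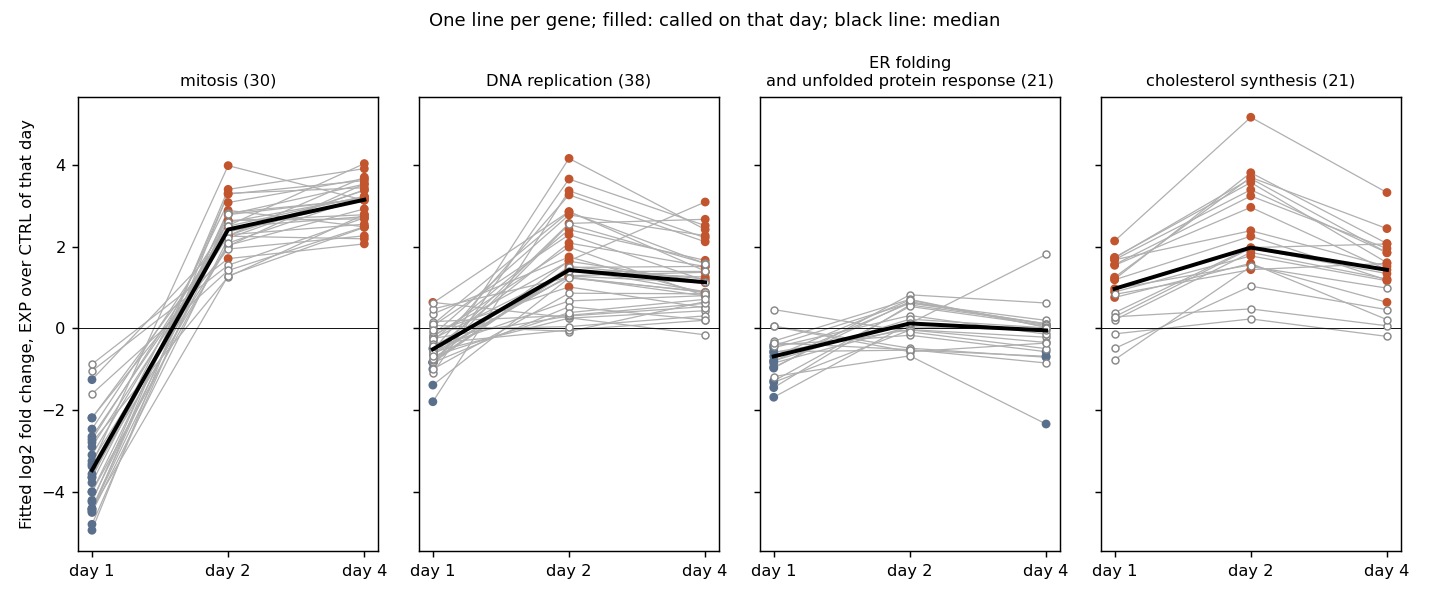
Log2 fold change of EXP over CTRL on days 1, 2 and 4 for the tested genes of 4 lists, 1 line per gene, with called values filled and the list median in black. Mitosis genes go from a median of -3.48 on day 1 to 2.42 on day 2, while cholesterol synthesis medians are above 0 on each day, and the ER folding median goes from -0.69 to 0.12.

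Folding genes of the endoplasmic reticulum, of which 0 were called on day 2, had 14 lower calls and a median of -0.69 on day 1. For 9 of the 21 the difference between days passed. Hsp90b1 encodes the HSP90 of that compartment, and the log2 fold change of Hsp90b1 was -0.96 on day 1 and 0.65 on day 2, a difference of 1.61 (SE 0.34, adjusted p 0.0145). For Pdia6 these values were -0.98 and 0.82, with a difference of 1.79 (adjusted p 0.00978).

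In the Wnt list 5 of 30 genes differed, all with the higher value on day 2. Lgr5 had -0.61 on day 1 and 3.54 on day 2, a difference of 4.15 (SE 0.65, adjusted p 0.00216). Wnt2, a ligand, had -2.56 and 2.51, a difference of 5.07 (adjusted p 0.0364), although its day 2 value alone did not pass (adjusted p 0.117). Scarb1 rose on both days, by 1.25 and 2.89, with a difference of 1.63 (adjusted p 0.00520). Cdkn1a was higher on day 1 (0.56) and lower on day 2 (-0.85), with a difference of -1.41 (adjusted p 0.00754). Its day 2 call, EXP against CTRL, was lost without CTRL replicate 2, with adjusted p up to 0.0579. For differences of single genes between days, fits without 1 library were not examined. For cholesterol synthesis 3 of 21 genes differed, with medians of 0.97 on day 1 and 1.97 on day 2.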

How the data were processed

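The deposited table holds counts per gene for 22 libraries of sorted mouse skin fibroblasts, with 55414 genes, of which 52081 had a symbol in the gene name table used here. Reads were trimmed with Trimmomatic and set on build mm39, per the submitters' processing notes. The aligner, the counter, the annotation release and the strand setting are not given in the sources used here, so reads of overlapping or antisense genes cannot be told apart. Among genes described in the report with day 2 values, exons of Actn1, Aldh1l1, Arhgdib, Col3a1, Col5a1, Cdca8, Hmgcs1, Lss, Prc1, Runx1, Runx2, Spp1 and Tnc, among others, overlap another gene in GENCODE M21 (127 of the named genes and list members called).

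Counts were tested with edgeR 4.0.16 (R 4.3.3), with TMM scaling, filterByExpr (minimum count 10), 1 group per day and treatment over all 22 libraries (16 residual degrees of freedom) and a threshold of 0.05 for adjusted p. The SE of a log2 fold change was derived from it and its quasi-likelihood F value. Tests of the difference between days used the same fit. DESeq2 1.42.0, limma 3.58.1 (voom), other scalings, no filter, a replicate block, day 2 alone and leaving out each day 2 library were alternatives. With 3 against 3 libraries an exact permutation test cannot go below 0.1, so single genes were tested only in the fit over all genes. Tested on simulated counts for day 2 (17078 genes, 200 changed), the method called 21% of 2-fold and 80% of 4-fold changes, with 4 false calls among 105. The changed genes were picked among those with higher counts, and as many rose as fell. The simulation thus held no shift in composition like that of the collagen genes, and its rates need not hold for the real libraries.

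Genes were named by rule: the 10 largest rises and falls at a mean of at least 5 CPM without overlap, the 10 smallest p-values, the 5 smallest for each difference between days, the sort markers, and for each list up to 4 rises, up to 4 falls and the most abundant member. Other called list members, and Il6, Ccl2, Tgfb1, Fn1, Lox, Dhcr7, Saa2, Egr1, Lum, Pdia6, Hsp90b1, Wnt2, Vegfa and Ppbp, were added after their values were seen. The lists and genes were chosen with earlier results of these data known. Promoters are from RefSeq (GRCm38.p6), which differs from the build of the files, and were matched by symbol. Some genes of these lists are counted but not reported here by name. Promoters were found for 16 cholesterol, 24 mitosis, 30 DNA replication, 14 acute-phase and antimicrobial and 5 neutrophil factor genes.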

Additional observations from a re-analysis of the deposited data

Results flagged for a closer look

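These results stood out because the effect of the expander itself was tested between days 1 and 2 and differed. This was so for 532 genes. In the mitosis list 28 members differed, in the DNA replication list 20, among genes of protein folding in the endoplasmic reticulum 9, among G1 genes 6 and in the Wnt list 5.

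The difference, day 2 minus day 1 on the log2 scale, was 7.31 for Spc24, 5.58 for Cdca8 and 4.66 for Stmn1, a microtubule regulator. The same measure was 4.74 for Gm11223 (a predicted gene), 2.86 for Aldh1l1 and 2.29 for Arhgdib. It was 2.08 for Tgfb3, a growth factor of the TGF-beta family. The day 2 call of Tgfb3, EXP against CTRL, was lost without CTRL replicates 1 and 2 or EXP replicate 1, with adjusted p up to 0.138. Its day 2 log2 fold change was 0.81, and 0.5 without EXP replicate 1. The difference between days was 1.63 for Scarb1 and -1.98 for Fhl1, which fell on day 2.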

How the results depend on the processing

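All 2365 genes called on day 2 kept their direction in each alternative that tested them (2279 were tested with the day 2 libraries alone). The number called was 4582 with limma voom and 4631 with library totals, and between 894 and 2152 without 1 library, lowest without EXP replicate 1. It was 3123 with DESeq2, 1663 without the filter on low counts and 3484 with the day 2 libraries alone. For the difference between days 2 and 1 the count was 1077 with DESeq2, 1539 with limma voom and 172 to 478 without 1 day 2 library. Against day 4 DESeq2 called 35 genes and limma voom 13. The cause of these shifts was not tested, except that leave-out fits hold fewer samples.

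Same-numbered CTRL and EXP libraries did not deviate together (correlations -0.063, -0.004 and -0.007), and the main fit did not pair them. With 3 libraries a group, such correlations cannot decide whether the libraries were paired. With the replicate block 2213 genes were called on day 2, and 265 for the difference from day 1. The block kept 1924 of the 2365 main calls (81.4%), and 32 named genes lost theirs. Of the genes described these were Ccn2, Cd14, Cd248, Cfb, Col5a2, Dcn, Gbp2, Igfbp4, Insig1, Kdr, Nfkbia, Plau, Serpinh1, Sfrp2, Sparc and Thbd.

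Of 346 named called genes, 183 were called in all 6 fits that left out a library. Changes of sign touched 14 named genes, none of them called. With library totals the log2 fold change turned to 0.15 for Epcam (0.34 with limma voom), 0.12 for Npc2, 0.36 for Tnfaip6, 0.14 for Mmp2, 0.45 for Plaur, 0.17 for Slc20a1, 0.03 for Tgfbi, 0.45 for Hspa5, 0.18 for Slc3a2, 0.40 for Ndrg1, 0.13 for Ly6a and 0.18 for Tgfb1. Without 1 library it ran from -0.17 to 0.09 for Plaur, -0.8 to 0.08 for Epcam, -0.02 to 0.22 for Mthfd2, -0.15 to 0.07 for Hspa5, -0.08 to 0.62 for Ccl7 and -0.32 to 0.03 for Tnfaip6. A level of 3 counts, which is 0.0985 to 0.155 CPM, served as the floor for low genes, and levels under it rest on fewer counts.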
